A study of Mus musculus with 8 samples.

Results

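Solute carriers are membrane proteins that move amino acids, sugars, ions, vitamins, nucleosides and other small molecules across the plasma membrane and the membranes of organelles. The genes described here are all those on the array whose symbol is Slc followed by a family number. The array held 486 probes for 375 such genes, and the probe with the highest mean signal stood for each gene. A gene was tested where that probe was well above background on both arrays of 1 or more groups, and 245 of the 375 genes were. The other 130 were not tested. In the whole series 13494 of 21150 genes were tested. A gene that passed through 1 group alone had to be higher there, so the counts below describe tested genes and not the whole family. The filter set the direction of such a gene for that group, and its adjusted p-values there are no independent support. The Slco organic anion transporters were kept apart. Of the 375 symbols, 7 name no transporter. Slc2a4rg-ps, Slc4a1ap, Slc7a6os and the scaffold genes Slc9a3r1 and Slc9a3r2 were among the tested genes, and Slc13a2os and Slc36a1os were not. All of them are counted in the substrate family of their number.

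All samples were CD4 single-positive thymocytes, which have kept CD4 and lost CD8, taken from mouse thymus and not cultured before lysis. The WT Tconv group held conventional cells of wild-type mice with low CD25. The WT Treg group held Foxp3+ regulatory T cells, also of wild-type mice. Nr4a-TKO preTreg, called Nr4a-TKO below, were precursors of the genotype labelled Nr4a-TKO, sorted for high CD25, high GITR and high Nr4a3. Foxp3-KO preTreg, called Foxp3-KO below, were precursors of the genotype labelled Foxp3-KO, sorted for high CD25 and a Foxp3 reporter. Each of the 4 groups had 2 biological replicates, which gives 8 arrays. No wild-type precursor was analysed here, so genotype and sort gate cannot be told apart in any comparison that involves a precursor group. The strain, age and sex of the mice, the alleles behind the genotype labels and the exons they delete were not given in the sources used here. In sorted bulk samples, fewer cells that express a gene and less RNA of it per cell cannot be told apart.

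Solute carriers fall into families by sequence, and a family usually shares a kind of substrate. Some are exchangers, some couple uptake to sodium or protons, and the Slc25 family sits mostly in the inner mitochondrial membrane. In T cells they are best known for supplying glucose, glutamine and large neutral amino acids to activated cells, for exporting lactate, and for holding ion and pH balance. Thymic regulatory T cells develop from CD4 single-positive cells that receive strong T cell receptor signals and upregulate CD25 and GITR. Nr4a receptors are nuclear orphan receptors induced by those signals, and Foxp3 is the transcription factor that defines the lineage.

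The 75th percentile of signal lay between 8.9 and 10.4 times background on the 8 arrays, and between 47.7% and 52.1% of probes were well above background. Replicates correlated at Pearson's r of 0.997 for WT Tconv, 0.990 for both WT Treg and Nr4a-TKO, and 0.976 for Foxp3-KO over tested genes, so the 2 Foxp3-KO arrays differed most. Levels are given as log2 signal minus the 75th percentile of the array, and a level of 1 gene cannot be set against that of another gene. Foxp3 read -3.57 and -3.96 for WT Tconv, 4.84 and 4.56 for WT Treg, 3.60 and 3.08 for Nr4a-TKO and 1.79 and 1.58 for Foxp3-KO. Nr4a1 read 6.67 and 6.66 for WT Tconv, 7.12 and 7.46 for WT Treg, 7.54 and 7.79 for Nr4a-TKO and 6.99 and 7.44 for Foxp3-KO, and Nr4a2 read -1.68 and -1.73 for WT Tconv, 1.44 and 1.63 for WT Treg, 3.53 and 3.70 for Nr4a-TKO and 1.68 and 1.1 for Foxp3-KO. Nr4a3 read -1.70 and -1.74 for WT Tconv, -0.52 and 0.85 for WT Treg, -0.61 and -0.30 for Nr4a-TKO and -1.06 and -0.50 for Foxp3-KO. The Nr4a1 and Nr4a2 signals were thus highest on the arrays labelled Nr4a-TKO and that of Nr4a3 on WT Treg 2, and a probe outside the deleted part checks no genotype. The 7 T cell markers on the array were well above background on all arrays. The 12 myeloid markers had a median log2 signal of -5.31 and -5.33 for WT Tconv, -0.36 and -1.65 for WT Treg, 1.76 and 0.66 for Nr4a-TKO and 1.12 and -1.5 for Foxp3-KO, and 4, 5, 11, 9, 12, 12, 12 and 9 of them were well above background on those arrays. Of the list, Lyz2, Adgre1, C1qa and Mrc1 were among those not well above background on at least 1 WT Tconv array. Csf1r, Itgam, C1qb and Cd68 were well above background on both WT Tconv arrays. Itgam went the other way, at 5.09 and 5.17 for WT Tconv and 4.78 and 4.82 for Nr4a-TKO. The 7 B cell markers had a median of -5.04 and -5.27 for WT Tconv, -3.39 and -4.33 for WT Treg, 2.04 and -0.22 for Nr4a-TKO and -0.052 and -3.02 for Foxp3-KO. In WT Treg, Nr4a-TKO and Foxp3-KO, replicate 1 thus had the higher median of both marker lists. The same was true of 50 of the 245 tested solute carrier genes (20.4%, beside 14.3% of all tested genes) and of 24 of the 94 called with at least a 2-fold difference. These 24 were Slc1a3, Slc2a6, Slc7a8, Slc7a10, Slc8b1, Slc13a3, Slc16a3, Slc17a9, Slc24a3, Slc25a10, Slc25a24, Slc25a41, Slc25a53, Slc29a1, Slc29a4, Slc39a4, Slc39a8, Slc39a13, Slc40a1, Slc41a2, Slc43a3, Slc45a4, Slc46a3 and Slc52a3. The part of myeloid or B cells in the levels of these genes was not tested. The arrays shared 1 slide, on which WT Tconv and Nr4a-TKO lay in row 1 and WT Treg and Foxp3-KO in row 2. For groups compared across rows, the row and the group cannot be told apart.

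Among the largest solute carrier differences was that of the organic cation transporter gene Slc22a2, which was high in WT Treg and Foxp3-KO and close to background in WT Tconv and Nr4a-TKO. This split is also that of slide row 2 from row 1, so group and row cannot be told apart for it. The same holds for other genes given below as high or low in WT Treg and Foxp3-KO together. Slc17a6, which encodes a vesicular glutamate transporter, was well above background in Nr4a-TKO alone, as were Slc13a3, Slc34a3 and Slc1a3. These genes passed the filter through Nr4a-TKO alone, so their direction there was set by the filter. The peptide transporter gene Slc15a1 was high in WT Tconv, at background in WT Treg and Nr4a-TKO, and between the levels of the wild-type groups in Foxp3-KO. As a class, however, solute carrier genes were called about as often as all genes. A gene was called where limma gave an adjusted p under 0.05 after Benjamini-Hochberg adjustment over all 13494 tested genes.

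Between WT Treg and WT Tconv, 46 solute carrier genes were higher and 43 lower in WT Treg. These 89 are 36.3% of the 245, against 34.2% of all tested genes, of which 14% were higher and 20.2% lower. Nr4a-TKO had 60 genes higher and 65 lower than WT Tconv, or 51% against 48.4% of all genes (21.2% higher and 27.2% lower). Foxp3-KO had 31 higher and 31 lower than WT Tconv, or 25.3% against 24% (10.3% higher and 13.7% lower). Against WT Treg, Nr4a-TKO had 48 higher and 43 lower, or 37.1% against 35% (18.5% higher and 16.5% lower). Foxp3-KO had 6 higher and 13 lower than WT Treg, or 7.76% against 6.37% (3.28% higher and 3.1% lower). Nr4a-TKO had 53 higher and 46 lower than Foxp3-KO, or 40.4% against 33.3% (17.6% higher and 15.7% lower). Scaling each array to its median in place of the 75th percentile moved these splits by more than 10 percentage points in 4 comparisons. They became 34 higher and 60 lower for WT Treg against WT Tconv, 29 and 70 for Foxp3-KO against WT Tconv, 55 and 30 for Nr4a-TKO against WT Treg, and 5 and 7 for Foxp3-KO against WT Treg. These shares lay near the background and are no result about solute carriers. The excess was largest in percentage points for Nr4a-TKO against Foxp3-KO, and the excesses were not tested. With the replicate number as a block, Foxp3-KO had 11 genes different from WT Treg in place of 19. The median log2 difference of the 245 genes ranged from -0.097 to 0.067 over the 6 comparisons, and that of all tested genes from -0.11 to 0.0081.

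Differences of at least 2-fold made up a somewhat larger share of solute carriers than of all genes in these values. They made up 14.3% of the members against 12.1% of all genes for WT Treg over WT Tconv, and 28.6% against 19.6% for Nr4a-TKO over WT Tconv. For Foxp3-KO over WT Tconv the shares were 11.4% and 8.02%, and for Nr4a-TKO over WT Treg 15.5% and 13.1%. For Foxp3-KO over WT Treg they were 4.49% and 2.8%, and for Nr4a-TKO over Foxp3-KO 16.7% and 12%. With normexp background correction the shares fell to 8.98% and 7.28%, 16.3% and 12.5%, 6.94% and 4.71%, 9.39% and 8.41%, 1.63% and 1.67%, and 10.6% and 7.73% in the same order, so that Foxp3-KO against WT Treg had no larger share among solute carriers. These comparisons share arrays, and the excesses were not tested. In all, 174 members (71.0% of the 245, beside 68.8% of all tested genes) were called in at least 1 comparison. Of these, 94 (38.4%, beside 27.5%) had at least a 2-fold difference, and 71 members were called in none. The counts of called genes given for each substrate family stand against these shares of all genes. With 2 arrays a group the calls leaned on single arrays. Without any 1 of the 8 arrays, 24 of the 89 calls between WT Treg and WT Tconv were kept each time, 59 of 125 between Nr4a-TKO and WT Tconv, 9 of 62 between Foxp3-KO and WT Tconv, 25 of 91 between Nr4a-TKO and WT Treg, 0 of 19 between Foxp3-KO and WT Treg, and 43 of 99 between Nr4a-TKO and Foxp3-KO. The number of calls between WT Treg and WT Tconv was 27 without WT Tconv 1, 32 without WT Tconv 2, 41 without WT Treg 1 and 45 without WT Treg 2. Between Nr4a-TKO and WT Tconv it was 62 without WT Tconv 1 and 70 without WT Tconv 2, and between Foxp3-KO and WT Tconv it was 10 and 11 without these arrays. Between Nr4a-TKO and WT Treg it was 39 without Nr4a-TKO 1, 59 without Nr4a-TKO 2, 43 without WT Treg 1, 41 without WT Treg 2 and 60 without either WT Tconv array. Between Foxp3-KO and WT Treg it was 32 without Foxp3-KO 1, 5 without WT Treg 1 or either WT Tconv array, and 0 without WT Treg 2, where limma gave 40 genes at an unadjusted p under 0.05. Between Nr4a-TKO and Foxp3-KO it was 48 without Nr4a-TKO 1. Where a call named below ended without an array, that array is given at the end of the paragraph.

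**Figure D1:**
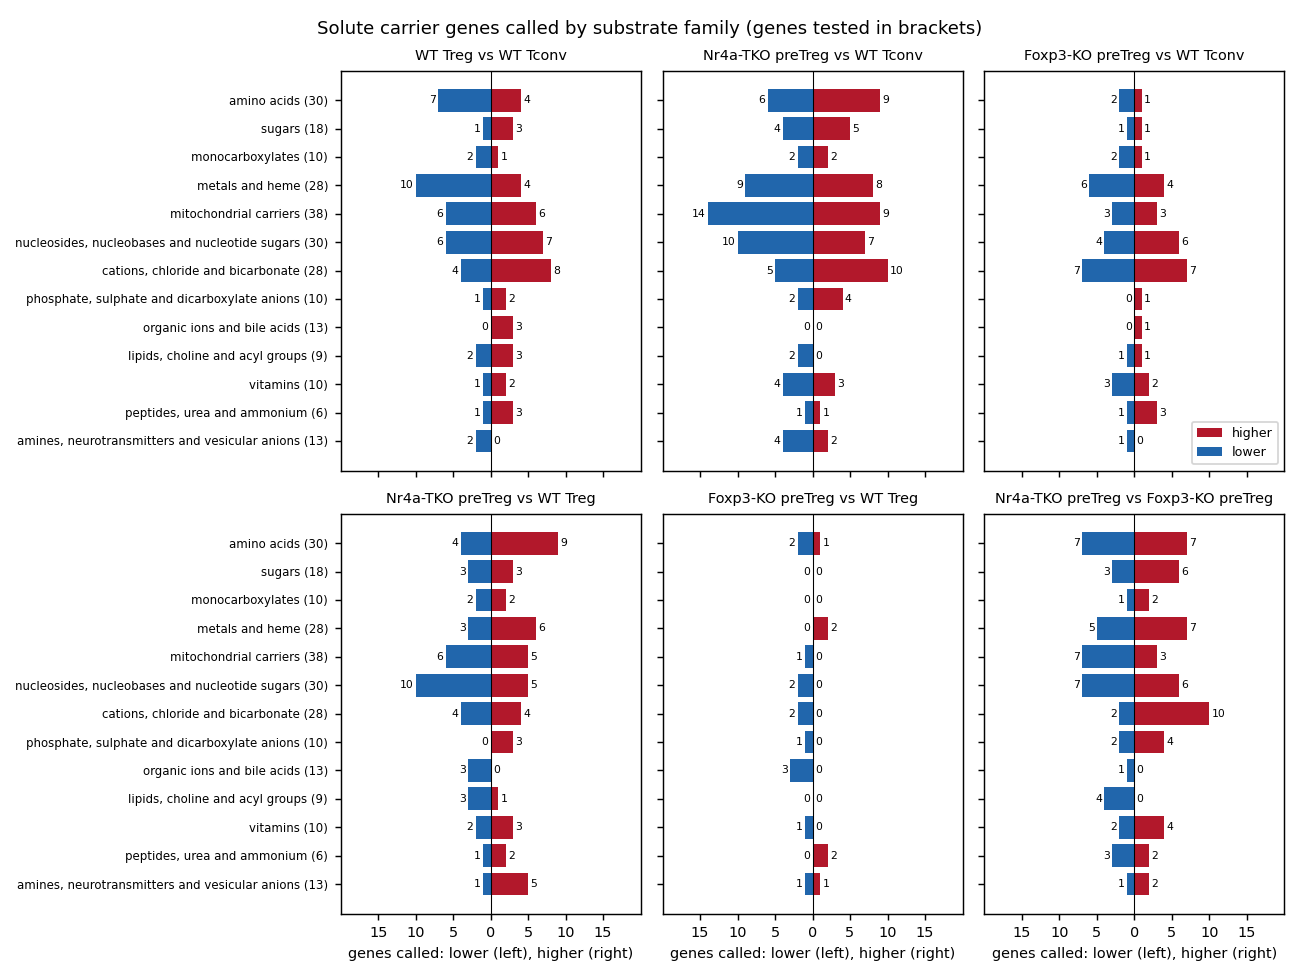
Number of tested solute carrier genes called lower (blue bars, to the left) or higher (red bars, to the right) in each of the 6 comparisons, by substrate family, with the number of genes tested in brackets. Foxp3-KO preTreg against WT Treg had the fewest calls, 19 in all.

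**Figure D2:**
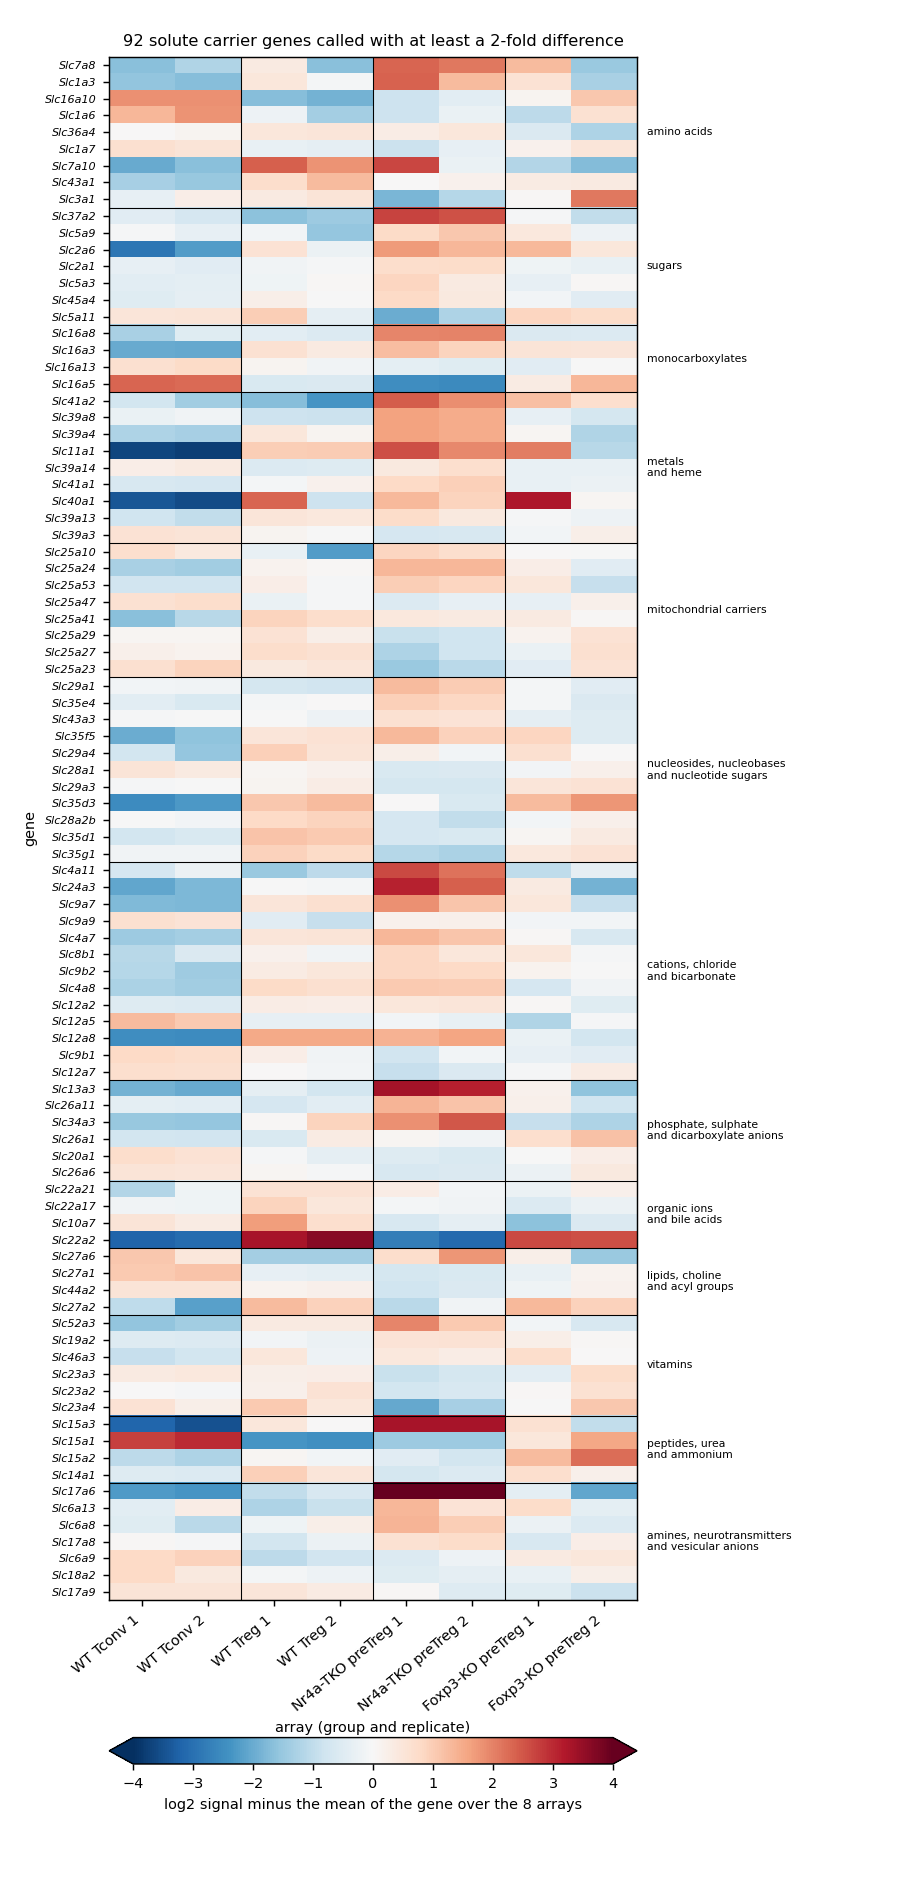
Log2 signal of 92 of the 94 solute carrier genes called with at least a 2-fold difference, on each of the 8 arrays (columns), relative to the mean of the gene over the arrays (colour). Slc22a2 stands out as high in WT Treg and Foxp3-KO preTreg, and Slc17a6, Slc13a3 and Slc15a3 as high in Nr4a-TKO preTreg. The scale ends at 4 in both directions.

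Organic ion transporters and bile acid carriers had 13 tested genes of 37 on the array, 4 of them called. Slc22a2 encodes the organic cation transporter OCT2, best known from the kidney. It read 1.94 and 2.27 for WT Treg, 1.29 and 1.21 for Foxp3-KO, -4.11 and -4.45 for Nr4a-TKO and -4.56 and -4.44 for WT Tconv (well above background on 1 array). All arrays of WT Treg and Foxp3-KO were at least 1 unit above the 75th percentile, and all arrays of the other groups were more than 4 units below it. The former arrays lay in slide row 2 and the latter in row 1. Slc22a2 was 97.6-fold higher in WT Treg than WT Tconv (log2 difference 6.61 ± 0.16, adjusted p = 8.46e-05) and 53.9-fold higher in Foxp3-KO than WT Tconv (log2 difference 5.75 ± 0.16, adjusted p = 0.000171). Between the precursors it was 46.2-fold lower in Nr4a-TKO than Foxp3-KO (log2 difference -5.53 ± 0.16, adjusted p = 0.000201), and against the mature cells 83.7-fold lower in Nr4a-TKO than WT Treg (log2 difference -6.39 ± 0.16, adjusted p = 0.00012). WT Treg and Foxp3-KO lay within 1 unit of each other, with a log2 difference of -0.86 ± 0.16 (adjusted p = 0.0419) for Foxp3-KO minus WT Treg. Slc22a2 lost its call between Foxp3-KO and WT Treg without any 1 array other than Nr4a-TKO 1 and Nr4a-TKO 2 (adjusted p up to 0.171).

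The other called genes of this family changed far less. Slc22a17, which encodes a receptor for lipocalin-2, read 1.97 and 1.52 for WT Treg, 0.94 and 0.91 for WT Tconv, 1.0 and 0.95 for Nr4a-TKO and 0.54 and 0.85 for Foxp3-KO. It was highest in WT Treg and 2.08-fold lower in Foxp3-KO than WT Treg (log2 difference -1.06 ± 0.17, adjusted p = 0.0311). Slc10a7, a relative of the bile acid carriers, was not well above background in either precursor group and was at least 2.27-fold lower in Foxp3-KO than WT Treg (adjusted p = 0.0471) and at least 3.17-fold lower in Nr4a-TKO than WT Treg (adjusted p = 0.0377). Slc22a21, a carnitine transporter gene, was 2.39-fold higher in WT Treg than WT Tconv (log2 difference 1.26 ± 0.35, adjusted p = 0.0419). Slc10a1, which encodes the hepatic bile acid carrier NTCP, was not called, and its probes disagreed in full. The probe used was bright on all 8 arrays, and the other was well above background on 0 arrays, so the level of that gene is not known here. Slc22a17 was no longer called between Foxp3-KO and WT Treg without any 1 array other than Foxp3-KO 2 (adjusted p up to 0.0875). Slc10a7 dropped out of the calls between Foxp3-KO and WT Treg without any 1 array other than Foxp3-KO 2 (adjusted p up to 0.143), and between Nr4a-TKO and WT Treg without any 1 array other than WT Treg 2, Foxp3-KO 1 and Foxp3-KO 2 (adjusted p up to 0.151). Slc22a21 lost its call between WT Treg and WT Tconv without any 1 array other than WT Tconv 2, Foxp3-KO 1 and Foxp3-KO 2 (adjusted p up to 0.139).

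Fatty acid and choline transporters had 9 tested genes, 6 of them called. Slc27a2 encodes a fatty acid transport protein that is also a very long-chain acyl-CoA synthetase, and its pattern resembled that of Slc22a2. It read -2.36 and -2.70 for WT Treg, -2.34 and -2.69 for Foxp3-KO, -4.70 and -3.76 for Nr4a-TKO (well above background on 1 array) and -4.65 and -5.78 for WT Tconv (not well above background). WT Treg and Foxp3-KO did not overlap with the other groups. Slc27a2 was at least 4.28-fold higher in WT Treg than WT Tconv (adjusted p = 0.0102), at least 4.32-fold higher in Foxp3-KO than WT Tconv (adjusted p = 0.0158), 3.25-fold lower in Nr4a-TKO than WT Treg (log2 difference -1.70 ± 0.47, adjusted p = 0.0391) and 3.28-fold lower in Nr4a-TKO than Foxp3-KO (log2 difference -1.71 ± 0.47, adjusted p = 0.0399). Slc27a2 was no longer called between WT Treg and WT Tconv without WT Treg 1 (adjusted p up to 0.0568), and between Foxp3-KO and WT Tconv without WT Tconv 2 or Foxp3-KO 1 (adjusted p up to 0.0759), and between Nr4a-TKO and WT Treg without any 1 array other than WT Tconv 1, WT Tconv 2 and Nr4a-TKO 2 (adjusted p up to 0.16), and between Nr4a-TKO and Foxp3-KO without any 1 array other than WT Tconv 1, WT Tconv 2 and Nr4a-TKO 2 (adjusted p up to 0.161).

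Slc27a1, the fatty acid transporter FATP1, ran the other way. It read 0.72 and 0.82 for WT Tconv, -0.66 and -0.71 for WT Treg, -1.02 and -0.93 for Nr4a-TKO and -0.62 and -0.20 for Foxp3-KO, so WT Tconv exceeded all other arrays. It was 2.74-fold lower in WT Treg than WT Tconv (log2 difference -1.45 ± 0.15, adjusted p = 0.00202), 3.35-fold lower in Nr4a-TKO than WT Tconv (log2 difference -1.75 ± 0.15, adjusted p = 0.000984) and 2.26-fold lower in Foxp3-KO than WT Tconv (log2 difference -1.18 ± 0.15, adjusted p = 0.00722). Slc44a2, a choline transporter-like gene, was lower in Nr4a-TKO than in every other group, at 4.60 and 4.83 for Nr4a-TKO, 5.91 and 5.93 for WT Tconv, 5.53 and 5.61 for WT Treg and 5.24 and 5.59 for Foxp3-KO. It was 2.31-fold lower in Nr4a-TKO than WT Tconv (log2 difference -1.21 ± 0.14, adjusted p = 0.00232). Slc27a4, another fatty acid transport protein gene, was 1.53-fold lower in Nr4a-TKO than WT Treg (log2 difference -0.61 ± 0.085, adjusted p = 0.00574). Slc27a6 was well above background in WT Tconv and Nr4a-TKO only and was at least 1.23-fold lower in WT Treg than WT Tconv (adjusted p = 0.0491). Slc27a1 dropped out of the calls between Foxp3-KO and WT Tconv without WT Tconv 1 or WT Tconv 2 (adjusted p up to 0.0611). Slc27a6 lost its call between WT Treg and WT Tconv without any 1 array other than Foxp3-KO 1 and Foxp3-KO 2 (adjusted p up to 0.206).

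Nucleoside, nucleobase and nucleotide sugar transporters had 30 tested genes of 35, 24 of them called, 11 with at least a 2-fold difference. Several shared the direction of Slc22a2. Slc35d3, a nucleotide sugar transporter family gene known from platelet granules and dopamine receptor traffic, read -2.76 and -2.55 for WT Treg, -2.57 and -2.06 for Foxp3-KO, -3.81 and -4.44 for Nr4a-TKO (well above background on 1 array) and -6.35 and -6.12 for WT Tconv (not well above background). Its order was WT Tconv lowest, Nr4a-TKO between, and WT Treg and Foxp3-KO on top without overlap. Slc35d3 was at least 5.14-fold higher in WT Treg than WT Tconv (adjusted p = 0.000804) and at least 6.53-fold higher in Foxp3-KO than WT Tconv (adjusted p = 0.00114), and it was 3.51-fold lower in Nr4a-TKO than Foxp3-KO (log2 difference -1.81 ± 0.27, adjusted p = 0.00738).

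Slc35d1 brings UDP-glucuronic acid and UDP-N-acetylgalactosamine into the endoplasmic reticulum. It read 2.47 and 2.36 for WT Treg, 1.42 and 1.69 for Foxp3-KO, 0.67 and 0.72 for Nr4a-TKO and 0.59 and 0.72 for WT Tconv. WT Treg was highest, Foxp3-KO lay between, and the WT Tconv and Nr4a-TKO arrays lay together. Slc35d1 was 3.38-fold higher in WT Treg than WT Tconv (log2 difference 1.76 ± 0.11, adjusted p = 0.000562), 3.29-fold lower in Nr4a-TKO than WT Treg (log2 difference -1.72 ± 0.11, adjusted p = 0.000788) and 1.82-fold lower in Nr4a-TKO than Foxp3-KO (log2 difference -0.86 ± 0.11, adjusted p = 0.00557). Slc35g1, which encodes a partner of the calcium sensor STIM1, read 1.88 and 1.73 for WT Treg, 1.37 and 1.54 for Foxp3-KO, 0.83 and 0.80 for WT Tconv and -0.17 and -0.32 for Nr4a-TKO, with Nr4a-TKO below WT Tconv. It was 1.99-fold higher in WT Treg than WT Tconv (log2 difference 0.99 ± 0.10, adjusted p = 0.00217), 4.15-fold lower in Nr4a-TKO than WT Treg (log2 difference -2.05 ± 0.10, adjusted p = 0.00052) and 3.24-fold lower in Nr4a-TKO than Foxp3-KO (log2 difference -1.70 ± 0.10, adjusted p = 0.000807). Slc28a2b, named as a paralog of the purine nucleoside transporter gene Slc28a2, read 1.32 and 1.43 for WT Treg, 0.42 and 0.74 for Foxp3-KO, 0.51 and 0.41 for WT Tconv and -0.15 and -0.46 for Nr4a-TKO and was 3.21-fold lower in Nr4a-TKO than WT Treg (log2 difference -1.68 ± 0.15, adjusted p = 0.00175). A probe of Slc28a2b could also detect Slc28a2, and Slc28a2 itself was 1.82-fold lower in Nr4a-TKO than WT Treg (log2 difference -0.86 ± 0.15, adjusted p = 0.01). Slc28a2 was no longer called between Nr4a-TKO and WT Treg without WT Treg 1 (adjusted p up to 0.0533).

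The start sites of these genes are shown because Slc22a2, Slc27a2 and Slc35d3 were all high in WT Treg and Foxp3-KO and low in WT Tconv and Nr4a-TKO. The RefSeq table of promoters (build GRCm38.p6) held 242 entries for 185 of the 245 tested genes, since some genes have several starts. Each sequence is the 250 bases before the annotated start, 5′ to 3′ on the strand of the gene. Motifs were searched on both strands: the Nr4a response element AAAGGTCA, the forkhead motif TGTTTAC, the NF-kB motif, the AP-1 motif TGANTCA, the E-box CACGTG and the ATF4 motif TGATGNAA. Capitals mark a match.
Slc22a2, GRCm38.p6 chr17:12583939-12584188, plus strand: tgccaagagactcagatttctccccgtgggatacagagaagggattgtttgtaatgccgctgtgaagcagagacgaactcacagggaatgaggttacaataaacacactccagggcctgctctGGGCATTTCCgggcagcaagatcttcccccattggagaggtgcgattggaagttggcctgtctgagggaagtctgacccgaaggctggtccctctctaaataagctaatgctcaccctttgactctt
Slc27a2, GRCm38.p6 chr2:126552774-126553023, plus strand: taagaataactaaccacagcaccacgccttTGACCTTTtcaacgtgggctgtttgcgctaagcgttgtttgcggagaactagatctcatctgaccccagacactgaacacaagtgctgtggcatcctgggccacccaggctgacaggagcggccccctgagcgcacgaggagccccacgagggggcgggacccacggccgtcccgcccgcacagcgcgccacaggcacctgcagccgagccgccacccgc
Slc35d3, GRCm38.p6 chr10:19851460-19851709, minus strand: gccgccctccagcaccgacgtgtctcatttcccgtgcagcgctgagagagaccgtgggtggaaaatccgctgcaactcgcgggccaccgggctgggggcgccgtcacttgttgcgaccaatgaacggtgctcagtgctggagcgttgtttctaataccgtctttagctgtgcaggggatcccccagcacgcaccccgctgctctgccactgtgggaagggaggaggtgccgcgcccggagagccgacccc
In Slc22a2 the capitals are an NF-kB match, 127 to 118 bases before the start. In Slc27a2 they are an Nr4a response element on the opposite strand, 220 to 213 bases before the start. Slc35d3 held none of the 6 motifs in this window. The Nr4a element was found in 1.24% of promoters of tested solute carrier genes and in 1.34% of all 32851 promoters, and the NF-kB motif in 1.24% and 1.41%. Slc5a10 and Slc5a11 were the other members with the Nr4a element. The E-box was the motif whose shares differed most, at 12% of the 242 member promoters against 6.02% of all. The member promoters are of tested genes only, and the others include genes not tested, so the sets are unlike. The difference was not tested. A match is a description of the letters and no evidence of binding.

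Other nucleoside transporters had their own patterns. Slc29a1 encodes the equilibrative nucleoside transporter ENT1. It read 3.31 and 3.08 for Nr4a-TKO, 1.94 and 1.90 for WT Tconv, 1.98 and 1.60 for Foxp3-KO and 1.34 and 1.29 for WT Treg, and both Nr4a-TKO arrays exceeded all others. Slc29a1 was 2.41-fold higher in Nr4a-TKO than WT Tconv (log2 difference 1.27 ± 0.15, adjusted p = 0.00223) and 2.64-fold higher in Nr4a-TKO than Foxp3-KO (log2 difference 1.40 ± 0.15, adjusted p = 0.00306). Slc29a3, the lysosomal member ENT3, was lowest in Nr4a-TKO, at -2.28 and -2.27 for Nr4a-TKO, -1.63 and -1.61 for WT Tconv, -1.46 and -1.29 for WT Treg and -1.09 and -0.99 for Foxp3-KO. It was 2.36-fold lower in Nr4a-TKO than Foxp3-KO (log2 difference -1.24 ± 0.086, adjusted p = 0.00111). Slc28a1, a concentrative pyrimidine nucleoside transporter gene, was 2.04-fold lower in Nr4a-TKO than WT Tconv (log2 difference -1.03 ± 0.12, adjusted p = 0.00251). Slc43a3, a purine nucleobase transporter gene, was 2.02-fold higher in Nr4a-TKO than Foxp3-KO (log2 difference 1.02 ± 0.091, adjusted p = 0.00215).

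Slc35a1, which brings CMP-sialic acid into the Golgi, was lowest in Nr4a-TKO and was 1.97-fold lower in Nr4a-TKO than WT Tconv (log2 difference -0.98 ± 0.090, adjusted p = 0.00122). Slc35e4, an orphan member, was 2.66-fold higher in Nr4a-TKO than WT Tconv (log2 difference 1.41 ± 0.18, adjusted p = 0.00296) and 2.34-fold higher in Nr4a-TKO than Foxp3-KO (log2 difference 1.23 ± 0.18, adjusted p = 0.00732). Slc35f5, another orphan member, was not well above background in WT Tconv and was on both arrays of every other group. It was at least 4.55-fold higher in WT Treg than WT Tconv (adjusted p = 0.014) and at least 6.85-fold higher in Nr4a-TKO than WT Tconv (adjusted p = 0.00517). Slc29a4 encodes a plasma membrane monoamine transporter and was 3.66-fold higher in WT Treg than WT Tconv (log2 difference 1.87 ± 0.36, adjusted p = 0.0133). Slc35f5 dropped out of the calls between WT Treg and WT Tconv without any 1 of their 4 arrays (adjusted p up to 0.0854). Slc29a4 lost its call between WT Treg and WT Tconv without WT Tconv 2 or WT Treg 1 (adjusted p up to 0.0695).

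Peptide, urea and ammonium transporters had 6 tested genes, 5 of them called, and they moved apart. Slc15a1 encodes PepT1, a proton-coupled transporter of di- and tripeptides. It read -0.95 and -0.70 for WT Tconv, -3.24 and -2.17 for Foxp3-KO, -5.15 and -5.16 for Nr4a-TKO (not well above background) and -6.06 and -6.15 for WT Treg (not well above background). WT Tconv was highest, Foxp3-KO lay between, and the other groups were at background. Slc15a1 was at least 11.4-fold lower in WT Treg than WT Tconv (adjusted p = 0.000552) and at least 14-fold lower in Nr4a-TKO than WT Tconv (adjusted p = 0.000842). Slc15a1 was 3.67-fold lower in Foxp3-KO than WT Tconv (log2 difference -1.88 ± 0.34, adjusted p = 0.0175) and at least 3.10-fold higher in Foxp3-KO than WT Treg (adjusted p = 0.00966), and it was at least 3.80-fold lower in Nr4a-TKO than Foxp3-KO (adjusted p = 0.0063). Slc15a1 was no longer called between Foxp3-KO and WT Tconv without WT Tconv 1 or WT Tconv 2 (adjusted p up to 0.107), and between Foxp3-KO and WT Treg without WT Treg 2 (adjusted p up to 0.0655).

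Slc15a2, the high-affinity peptide transporter PepT2, was instead highest in Foxp3-KO. It read 1.75 and 2.72 for Foxp3-KO, 0.58 and 0.38 for WT Treg, 0.031 and -0.25 for Nr4a-TKO and -0.54 and -0.76 for WT Tconv, so both Foxp3-KO arrays lay above the other 6. Slc15a2 was 7.40-fold higher in Foxp3-KO than WT Tconv (log2 difference 2.89 ± 0.32, adjusted p = 0.00528) and 5.08-fold lower in Nr4a-TKO than Foxp3-KO (log2 difference -2.35 ± 0.32, adjusted p = 0.00615). Against WT Treg it was 3.37-fold higher in Foxp3-KO than WT Treg (log2 difference 1.75 ± 0.32, adjusted p = 0.0395). Slc14a1, the urea transporter UT-B, was likewise higher in WT Treg and Foxp3-KO, at 2.23 and 1.77 for WT Treg, 1.95 and 1.48 for Foxp3-KO, 0.56 and 0.72 for Nr4a-TKO and 0.74 and 0.71 for WT Tconv. It was 2.42-fold higher in WT Treg than WT Tconv (log2 difference 1.27 ± 0.21, adjusted p = 0.00901) and 2.56-fold lower in Nr4a-TKO than WT Treg (log2 difference -1.36 ± 0.21, adjusted p = 0.00781). Slc15a2 dropped out of the calls between Foxp3-KO and WT Treg without any 1 array other than Foxp3-KO 1 and Foxp3-KO 2 (adjusted p up to 0.176). Slc14a1 lost its call between WT Treg and WT Tconv without WT Tconv 1 or WT Tconv 2 (adjusted p up to 0.0591).

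Slc15a3 and Slc15a4 encode endolysosomal transporters of histidine and peptides, known from innate immune cells. Slc15a3 read 1.97 and 2.0 for Nr4a-TKO, -0.87 and -1.30 for WT Treg, -0.70 and -2.30 for Foxp3-KO and -4.49 and -4.81 for WT Tconv (not well above background). All 3 other groups exceeded WT Tconv, and Nr4a-TKO exceeded them all. It was at least 92.6-fold higher in Nr4a-TKO than WT Tconv (adjusted p = 0.000806), at least 11-fold higher in WT Treg than WT Tconv (adjusted p = 0.00574) and 11.2-fold higher in Nr4a-TKO than Foxp3-KO (log2 difference 3.49 ± 0.51, adjusted p = 0.00728). The myeloid markers also differed between these groups, and their part in this result was not tested. The median of the 12 myeloid markers was 1.12 on Foxp3-KO 1 and 0.66 on Nr4a-TKO 2, where Slc15a3 read -0.70 and 2.0.

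**Figure D3:**
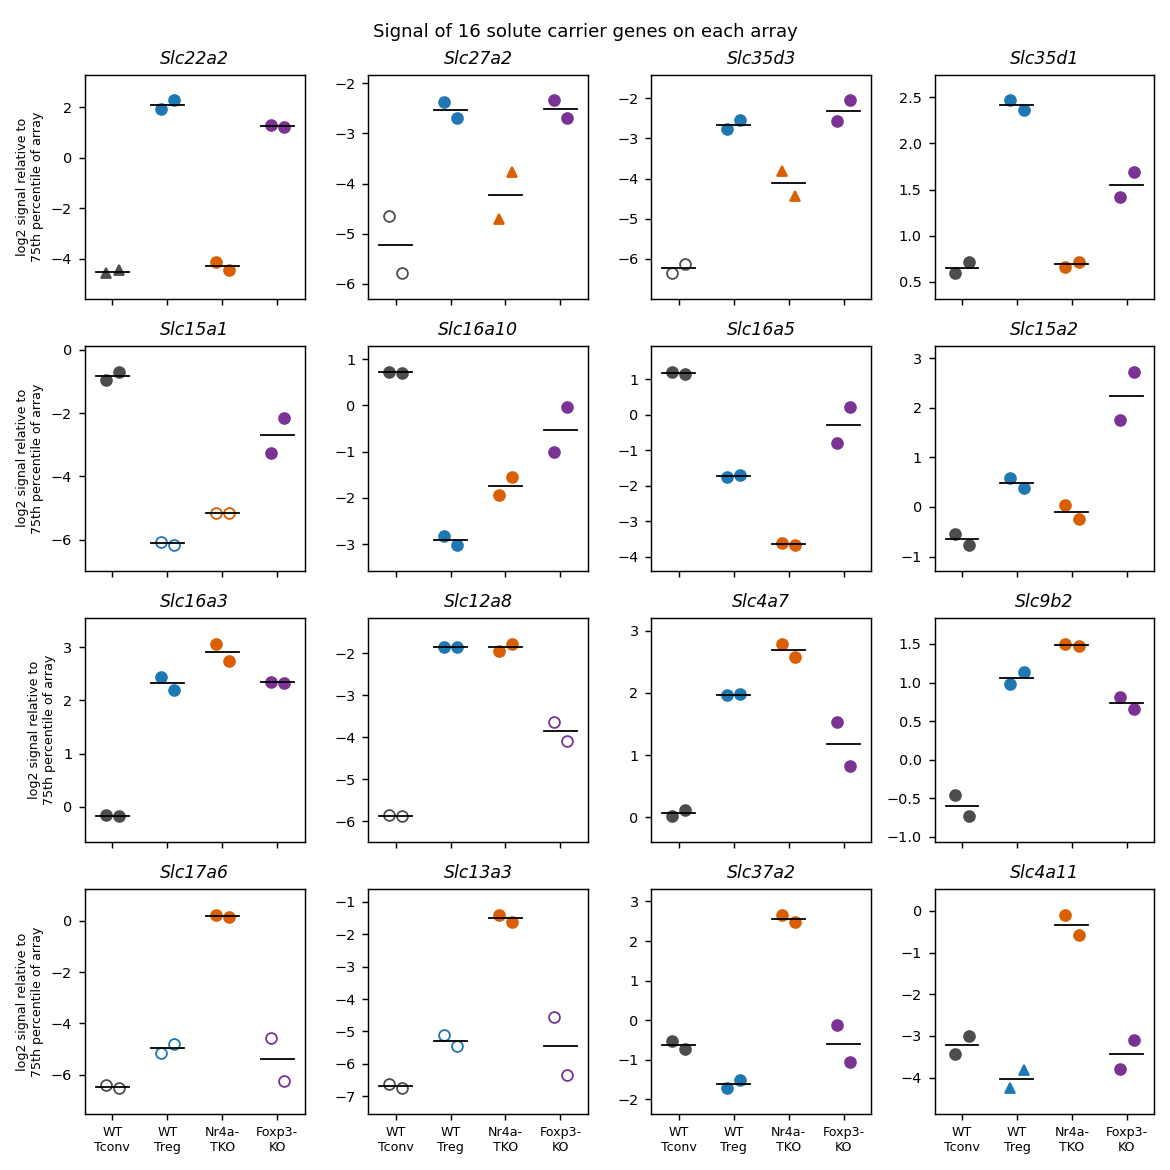
Log2 signal relative to the 75th percentile of the array for 16 solute carrier genes, with 1 point per array and a bar at the mean of the 2 arrays of a group. Filled circles mark groups with both arrays well above background, triangles groups with 1 such array and open circles groups with none. The top row shows genes high in WT Treg and Foxp3-KO preTreg, and the bottom row genes high in Nr4a-TKO preTreg.

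Monocarboxylate transporters had 10 tested genes, 5 of them called. Slc16a3 encodes MCT4, which exports lactate. It read 3.07 and 2.75 for Nr4a-TKO, 2.36 and 2.33 for Foxp3-KO, 2.45 and 2.2 for WT Treg and -0.16 and -0.18 for WT Tconv, and WT Tconv was the lowest group by more than 2 units. Slc16a3 was 5.64-fold higher in WT Treg than WT Tconv (log2 difference 2.50 ± 0.14, adjusted p = 0.000367), 8.46-fold higher in Nr4a-TKO than WT Tconv (log2 difference 3.08 ± 0.14, adjusted p = 0.000206) and 5.71-fold higher in Foxp3-KO than WT Tconv (log2 difference 2.51 ± 0.14, adjusted p = 0.000574). The other probe of Slc16a3 had differences of 2.58, 3.21 and 2.60 in the same comparisons. Slc16a1, which encodes the lactate transporter MCT1, read -2.43 and -2.86 for WT Tconv, -2.53 and -2.57 for WT Treg, -3.25 and -3.02 for Nr4a-TKO and -3.05 and -2.81 for Foxp3-KO. It was 1.5-fold lower in Nr4a-TKO than WT Treg (log2 difference -0.59 ± 0.17, adjusted p = 0.0476), and its log2 difference was 0.089 ± 0.17 between WT Treg and WT Tconv (adjusted p = 0.727). Slc16a1 was no longer called between Nr4a-TKO and WT Treg without any 1 of their 4 arrays (adjusted p up to 0.19).

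Slc16a5 encodes MCT6, known for transport of drugs. It read 1.20 and 1.15 for WT Tconv, -0.79 and 0.20 for Foxp3-KO, -1.74 and -1.70 for WT Treg and -3.60 and -3.65 for Nr4a-TKO. The groups did not overlap, and their order was WT Tconv, Foxp3-KO, WT Treg and Nr4a-TKO. Slc16a5 was 7.44-fold lower in WT Treg than WT Tconv (log2 difference -2.89 ± 0.30, adjusted p = 0.00225), 27.9-fold lower in Nr4a-TKO than WT Tconv (log2 difference -4.80 ± 0.30, adjusted p = 0.000483) and 10.1-fold lower in Nr4a-TKO than Foxp3-KO (log2 difference -3.34 ± 0.30, adjusted p = 0.00218). The log2 difference was 1.43 ± 0.30 between Foxp3-KO and WT Treg (adjusted p = 0.0549).

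Slc16a8, the lactate transporter MCT3 of the retinal pigment epithelium, was high in Nr4a-TKO, at -1.28 and -1.23 for Nr4a-TKO, -4.52 and -3.72 for WT Tconv (well above background on 1 array), -3.65 and -3.78 for WT Treg and -3.81 and -3.77 for Foxp3-KO (well above background on 1 array). It was 7.29-fold higher in Nr4a-TKO than WT Tconv (log2 difference 2.87 ± 0.25, adjusted p = 0.00109), 5.5-fold higher in Nr4a-TKO than WT Treg (log2 difference 2.46 ± 0.25, adjusted p = 0.00227) and 5.79-fold higher in Nr4a-TKO than Foxp3-KO (log2 difference 2.53 ± 0.25, adjusted p = 0.00277). Slc16a13, a gene of the same family, was highest in WT Tconv and was 2.24-fold lower in Nr4a-TKO than WT Tconv (log2 difference -1.16 ± 0.16, adjusted p = 0.00384). Its dimmer probe, well above background on all 8 arrays, had a difference of only -0.31. Bsg and Emb encode the chaperones that carry monocarboxylate transporters to the membrane. Bsg read 1.63 and 1.65 for WT Tconv, 1.63 and 1.58 for WT Treg, 1.98 and 1.95 for Nr4a-TKO and 1.53 and 1.66 for Foxp3-KO, and Emb read 4.40 and 4.33 for WT Tconv, 3.83 and 4.07 for WT Treg, 3.95 and 4.30 for Nr4a-TKO and 3.78 and 3.80 for Foxp3-KO. Bsg was highest on both Nr4a-TKO arrays, with a log2 difference of 0.32 ± 0.076 (adjusted p = 0.0192) for Nr4a-TKO minus WT Tconv.

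Sugar transporters had 18 tested genes, 14 of them called, and most of the larger calls were rises in Nr4a-TKO. The 18 included Slc2a4rg-ps, which names no transporter and was not called. Slc2a1 encodes GLUT1, the main glucose transporter of activated T cells. It read 2.57 and 2.60 for Nr4a-TKO, 1.71 and 1.80 for WT Treg, 1.67 and 1.57 for Foxp3-KO and 1.51 and 1.40 for WT Tconv, and both Nr4a-TKO arrays exceeded the other 6. Slc2a1 was 2.19-fold higher in Nr4a-TKO than WT Tconv (log2 difference 1.13 ± 0.081, adjusted p = 0.000687), 1.78-fold higher in Nr4a-TKO than WT Treg (log2 difference 0.83 ± 0.081, adjusted p = 0.00205) and 1.96-fold higher in Nr4a-TKO than Foxp3-KO (log2 difference 0.97 ± 0.081, adjusted p = 0.00177). Slc2a3, which encodes the neuronal-type glucose transporter GLUT3, read 2.01 and 1.67 for Nr4a-TKO, 2.45 and 2.45 for WT Treg, 1.76 and 2.23 for Foxp3-KO and 2.14 and 2.22 for WT Tconv and was called in none of the 6 comparisons.

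Slc2a6 encodes GLUT6, a lysosomal hexose transporter. It read 1.33 and 0.94 for Nr4a-TKO, 0.92 and 0.070 for Foxp3-KO, 0.20 and -0.62 for WT Treg and -3.26 and -2.60 for WT Tconv, so all 3 other groups exceeded WT Tconv. It was 16.8-fold higher in Nr4a-TKO than WT Tconv (log2 difference 4.07 ± 0.42, adjusted p = 0.0017), 6.58-fold higher in WT Treg than WT Tconv (log2 difference 2.72 ± 0.42, adjusted p = 0.00756) and 10.8-fold higher in Foxp3-KO than WT Tconv (log2 difference 3.43 ± 0.42, adjusted p = 0.00722). Replicate 1 exceeded replicate 2 in each group but WT Tconv, as did the medians of the myeloid and B cell markers, whose part was not tested. Slc37a2, a sugar phosphate exchanger of the endoplasmic reticulum known from macrophages, read 2.65 and 2.47 for Nr4a-TKO, -0.52 and -0.72 for WT Tconv, -0.12 and -1.06 for Foxp3-KO and -1.71 and -1.5 for WT Treg. Both Nr4a-TKO arrays were far above the rest. Slc37a2 was 9.11-fold higher in Nr4a-TKO than WT Tconv (log2 difference 3.19 ± 0.30, adjusted p = 0.00135), 18-fold higher in Nr4a-TKO than WT Treg (log2 difference 4.17 ± 0.30, adjusted p = 0.000956) and 8.89-fold higher in Nr4a-TKO than Foxp3-KO (log2 difference 3.15 ± 0.30, adjusted p = 0.0026). Its other probe had differences of 3.12, 4.13 and 3.24. Slc2a6 dropped out of the calls between WT Treg and WT Tconv without WT Tconv 1 (adjusted p up to 0.0526), and between Foxp3-KO and WT Tconv without WT Tconv 1 (adjusted p up to 0.0559).

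The sodium-coupled inositol transporters moved in opposite directions. Slc5a3, which encodes SMIT1, was 2.01-fold higher in Nr4a-TKO than WT Tconv (log2 difference 1.01 ± 0.20, adjusted p = 0.0117). Slc5a11, which encodes SMIT2, read -2.57 and -2.55 for WT Tconv, -2.09 and -3.43 for WT Treg, -5.06 and -4.31 for Nr4a-TKO (not well above background) and -2.19 and -2.33 for Foxp3-KO, and Nr4a-TKO was the only group without a signal above background. It was at least 4.70-fold lower in Nr4a-TKO than Foxp3-KO (adjusted p = 0.0154) and at least 3.83-fold lower in Nr4a-TKO than WT Tconv (adjusted p = 0.0152). Slc45a4 was 2.05-fold higher in Nr4a-TKO than WT Tconv (log2 difference 1.03 ± 0.19, adjusted p = 0.00859). Slc5a9, a sodium-coupled mannose transporter gene, was 3.35-fold higher in Nr4a-TKO than WT Treg (log2 difference 1.74 ± 0.49, adjusted p = 0.0424). Slc5a3 lost its call between Nr4a-TKO and WT Tconv without WT Tconv 1 or WT Tconv 2 (adjusted p up to 0.0655). Slc5a11 was no longer called between Nr4a-TKO and Foxp3-KO without Nr4a-TKO 1 or Foxp3-KO 2 (adjusted p up to 0.0758), and between Nr4a-TKO and WT Tconv without WT Tconv 1, WT Tconv 2 or Nr4a-TKO 1 (adjusted p up to 0.0779). Slc45a4 dropped out of the calls between Nr4a-TKO and WT Tconv without WT Tconv 1 (adjusted p up to 0.056). Slc5a9 lost its call between Nr4a-TKO and WT Treg without any 1 array other than WT Treg 1, Foxp3-KO 1 and Foxp3-KO 2 (adjusted p up to 0.147).

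Amino acid transporters had 30 tested genes of 46, 24 of them called and 9 with at least a 2-fold difference. The 30 included Slc7a6os, which names no transporter and was not called. The genes known for feeding glutamine and leucine to activated T cells differed by less than 2-fold wherever they were called. Slc3a2 encodes CD98, the heavy chain that pairs with several light chains. It read 4.03 and 4.04 for Nr4a-TKO, 3.53 and 3.52 for WT Treg, 3.61 and 3.43 for Foxp3-KO and 3.59 and 3.63 for WT Tconv and was 1.42-fold higher in Nr4a-TKO than Foxp3-KO (log2 difference 0.51 ± 0.082, adjusted p = 0.00955). Slc7a5, its leucine-carrying light chain LAT1, read -0.67 and -0.64 for WT Tconv, -0.50 and -0.80 for WT Treg, -0.58 and -0.74 for Nr4a-TKO and -0.86 and -0.72 for Foxp3-KO and was called in none of the 6 comparisons. Slc1a5, the glutamine carrier ASCT2, read 3.80 and 3.60 for Nr4a-TKO, 3.14 and 3.30 for WT Treg, 3.10 and 3.0 for Foxp3-KO and 3.17 and 3.22 for WT Tconv and was 1.57-fold higher in Nr4a-TKO than Foxp3-KO (log2 difference 0.65 ± 0.10, adjusted p = 0.00965).

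The sodium-coupled glutamine transporters diverged. Slc38a1 was 1.55-fold higher in Nr4a-TKO than WT Treg (log2 difference 0.63 ± 0.083, adjusted p = 0.00486) and 1.43-fold higher in Nr4a-TKO than Foxp3-KO (log2 difference 0.51 ± 0.083, adjusted p = 0.0097). Slc38a2 read 3.0 and 3.10 for Nr4a-TKO, 4.05 and 3.91 for WT Tconv, 3.64 and 3.58 for WT Treg and 3.85 and 4.11 for Foxp3-KO, and Nr4a-TKO was the lowest group. It was 1.90-fold lower in Nr4a-TKO than WT Tconv (log2 difference -0.93 ± 0.11, adjusted p = 0.00276) and 1.90-fold lower in Nr4a-TKO than Foxp3-KO (log2 difference -0.93 ± 0.11, adjusted p = 0.00469). Slc38a9, which senses arginine at the lysosome for mTORC1, was 1.85-fold lower in Nr4a-TKO than Foxp3-KO (log2 difference -0.88 ± 0.14, adjusted p = 0.00966). Slc43a2, a carrier of large neutral amino acids, was 1.67-fold higher in Nr4a-TKO than WT Tconv (log2 difference 0.74 ± 0.11, adjusted p = 0.00439) and 1.65-fold higher in Nr4a-TKO than Foxp3-KO (log2 difference 0.72 ± 0.11, adjusted p = 0.00783). Slc7a1, the arginine transporter CAT1, was 1.32-fold lower in Nr4a-TKO than Foxp3-KO (log2 difference -0.40 ± 0.089, adjusted p = 0.0231). Slc1a4, Slc7a6 and Slc7a7 were called in none of the 6 comparisons. Slc7a11, the cystine and glutamate exchanger, was not tested. Slc7a1 was no longer called between Nr4a-TKO and Foxp3-KO without any 1 array other than WT Treg 1, WT Treg 2 and Nr4a-TKO 2 (adjusted p up to 0.0939).

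Larger differences lay in carriers less often described in T cells. Slc16a10 encodes TAT1, a carrier of aromatic amino acids. It read 0.72 and 0.70 for WT Tconv, -1.02 and -0.032 for Foxp3-KO, -1.94 and -1.55 for Nr4a-TKO and -2.82 and -3.01 for WT Treg, and the 4 groups did not overlap. Slc16a10 was 12.3-fold lower in WT Treg than WT Tconv (log2 difference -3.62 ± 0.33, adjusted p = 0.00147) and 5.5-fold lower in Nr4a-TKO than WT Tconv (log2 difference -2.46 ± 0.33, adjusted p = 0.00334). It was 5.24-fold higher in Foxp3-KO than WT Treg (log2 difference 2.39 ± 0.33, adjusted p = 0.0197). For that comparison its dimmer probe, well above background on 2 arrays, had a difference of only 0.37. Slc43a1, the neutral amino acid carrier LAT3, read -0.20 and 0.38 for WT Treg, -0.56 and -0.54 for Foxp3-KO, -0.89 and -0.72 for Nr4a-TKO and -2.24 and -2.42 for WT Tconv. WT Tconv was lowest without overlap. Slc43a1 was 5.34-fold higher in WT Treg than WT Tconv (log2 difference 2.42 ± 0.20, adjusted p = 0.00113), 2.87-fold higher in Nr4a-TKO than WT Tconv (log2 difference 1.52 ± 0.20, adjusted p = 0.00311) and 3.43-fold higher in Foxp3-KO than WT Tconv (log2 difference 1.78 ± 0.20, adjusted p = 0.00529). Slc16a10 dropped out of the calls between Foxp3-KO and WT Treg without WT Tconv 1, WT Tconv 2, WT Treg 1 or WT Treg 2 (adjusted p up to 0.111).

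Slc36a4, a proton-linked amino acid transporter gene, was lowest in Foxp3-KO and was 2.45-fold higher in Nr4a-TKO than Foxp3-KO (log2 difference 1.29 ± 0.21, adjusted p = 0.00966). Slc3a1, the rBAT heavy chain of cystine transport, read -2.87 and -0.79 for Foxp3-KO, -3.22 and -2.63 for WT Tconv, -2.53 and -2.38 for WT Treg and -4.74 and -4.04 for Nr4a-TKO (well above background on 1 array), with the 2 Foxp3-KO arrays far apart. It was 5.91-fold lower in Nr4a-TKO than Foxp3-KO (log2 difference -2.56 ± 0.68, adjusted p = 0.0377). The glutamate transporter genes Slc1a3, Slc1a6 and Slc1a7 were dim. Slc1a3, known as GLAST, read -6.71 and -6.84 for WT Tconv (not well above background), -4.70 and -5.20 for WT Treg (not well above background), -2.78 and -3.88 for Nr4a-TKO and -4.55 and -6.45 for Foxp3-KO (not well above background) and was at least 3.22-fold higher in Nr4a-TKO than WT Tconv (adjusted p = 0.0108). Slc1a6 was well above background in WT Tconv alone and was at least 2.03-fold lower in WT Treg than WT Tconv (adjusted p = 0.0389). The filter was passed by Slc1a3 through Nr4a-TKO alone and by Slc1a6 through WT Tconv alone. Slc1a7 was 2.24-fold lower in Nr4a-TKO than WT Tconv (log2 difference -1.16 ± 0.20, adjusted p = 0.00732). Slc3a1 lost its call between Nr4a-TKO and Foxp3-KO without any 1 array other than Foxp3-KO 1 and Foxp3-KO 2 (adjusted p up to 0.155). Slc1a3 was no longer called between Nr4a-TKO and WT Tconv without WT Tconv 1, WT Tconv 2 or Nr4a-TKO 1 (adjusted p up to 0.0584). Slc1a6 dropped out of the calls between WT Treg and WT Tconv without any 1 array other than Foxp3-KO 1 and Foxp3-KO 2 (adjusted p up to 0.166). Slc1a7 lost its call between Nr4a-TKO and WT Tconv without WT Tconv 1 (adjusted p up to 0.0501).

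Slc7a8 and Slc7a10 encode light chains for neutral amino acids, LAT2 and Asc-1. Slc7a8 read -0.83 and -1.05 for Nr4a-TKO, -1.90 and -4.66 for Foxp3-KO (well above background on 1 array), -2.81 and -4.83 for WT Treg (well above background on 1 array) and -4.84 and -4.38 for WT Tconv (well above background on 1 array), and replicate 1 exceeded replicate 2 in WT Treg and Foxp3-KO by more than 1.5 units. It was 12.7-fold higher in Nr4a-TKO than WT Tconv (log2 difference 3.67 ± 1.03, adjusted p = 0.0327). Slc7a8 passed the filter through Nr4a-TKO alone, so this adjusted p is no independent support. The myeloid markers differed between the same replicates in the same direction, and their part was not tested. Slc7a10 read -2.28 and -2.89 for WT Treg, -1.99 and -4.94 for Nr4a-TKO (well above background on 1 array), -5.84 and -6.39 for Foxp3-KO (not well above background) and -6.68 and -6.35 for WT Tconv (not well above background). It was at least 5.40-fold higher in WT Treg than WT Tconv (adjusted p = 0.0252), and the 2 Nr4a-TKO arrays were far apart. The filter was passed by Slc7a10 through WT Treg alone, so its direction there was set by the filter. Slc7a8 was no longer called between Nr4a-TKO and WT Tconv without any 1 of their 4 arrays (adjusted p up to 0.134). Slc7a10 dropped out of the calls between WT Treg and WT Tconv without any 1 of their 4 arrays (adjusted p up to 0.119).

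Vitamin transporters had 10 tested genes, 9 of them called. Slc52a3 encodes a riboflavin transporter. It read 0.30 and -0.62 for Nr4a-TKO, -1.29 and -1.30 for WT Treg, -1.77 and -2.31 for Foxp3-KO and -3.24 and -3.07 for WT Tconv, and WT Tconv was lowest. Slc52a3 was 7.96-fold higher in Nr4a-TKO than WT Tconv (log2 difference 2.99 ± 0.33, adjusted p = 0.00194) and 3.68-fold higher in Nr4a-TKO than Foxp3-KO (log2 difference 1.88 ± 0.33, adjusted p = 0.0116). Slc19a2, a thiamine transporter gene, was 2.15-fold higher in Nr4a-TKO than WT Tconv (log2 difference 1.1 ± 0.090, adjusted p = 0.00093) and 1.66-fold higher in Nr4a-TKO than WT Treg (log2 difference 0.73 ± 0.090, adjusted p = 0.00395).

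Slc19a1, the reduced folate carrier, was lowest in Foxp3-KO, at 1.29 and 1.29 for Foxp3-KO, 1.75 and 1.87 for WT Tconv, 1.78 and 1.92 for WT Treg and 1.94 and 2.11 for Nr4a-TKO, and it was 1.66-fold higher in Nr4a-TKO than Foxp3-KO (log2 difference 0.73 ± 0.10, adjusted p = 0.00572). Slc23a2, the ascorbate transporter SVCT2, was 2.11-fold lower in Nr4a-TKO than WT Treg (log2 difference -1.08 ± 0.21, adjusted p = 0.0147). Slc23a3, a relative of it, was 2.28-fold lower in Nr4a-TKO than WT Tconv (log2 difference -1.19 ± 0.36, adjusted p = 0.0386). Slc23a4, another relative, was not well above background in Nr4a-TKO and was at least 2.26-fold lower in Nr4a-TKO than WT Treg (adjusted p = 0.0124). Slc46a3, a lysosomal carrier, was 2.29-fold higher in Nr4a-TKO than WT Tconv (log2 difference 1.20 ± 0.30, adjusted p = 0.0228). Slc46a2, known from thymic stroma, was not tested. Slc23a2 lost its call between Nr4a-TKO and WT Treg without WT Treg 2, Nr4a-TKO 1 or Nr4a-TKO 2 (adjusted p up to 0.0737). Slc23a3 was no longer called between Nr4a-TKO and WT Tconv without any 1 array other than Foxp3-KO 1 and Foxp3-KO 2 (adjusted p up to 0.146). Slc23a4 dropped out of the calls between Nr4a-TKO and WT Treg without WT Treg 1 or Nr4a-TKO 1 (adjusted p up to 0.0646). Slc46a3 lost its call between Nr4a-TKO and WT Tconv without any 1 of their 4 arrays (adjusted p up to 0.109).

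Metal transporters had 28 tested genes, 20 of them called. Between WT Treg and WT Tconv, 4 were higher and 10 lower, beside 14% and 20.2% of all tested genes. Nr4a-TKO had 8 higher and 9 lower than WT Tconv (21.2% and 27.2% of all genes), and Foxp3-KO 4 and 6 (10.3% and 13.7%). Nr4a-TKO had 6 higher and 3 lower than WT Treg (18.5% and 16.5% of all genes), and 7 and 5 than Foxp3-KO (17.6% and 15.7%). Foxp3-KO had 2 higher and 0 lower than WT Treg (3.28% and 3.1%). Several zinc importers of the Slc39 family moved in different directions. Slc39a8, known as ZIP8, read 0.34 and 0.23 for Nr4a-TKO, -1.53 and -1.42 for WT Tconv, -1.58 and -1.95 for Foxp3-KO and -2.08 and -2.11 for WT Treg, and both Nr4a-TKO arrays exceeded the other 6. It was 3.38-fold higher in Nr4a-TKO than WT Tconv (log2 difference 1.76 ± 0.14, adjusted p = 0.000811), 5.20-fold higher in Nr4a-TKO than WT Treg (log2 difference 2.38 ± 0.14, adjusted p = 0.000647) and 4.14-fold higher in Nr4a-TKO than Foxp3-KO (log2 difference 2.05 ± 0.14, adjusted p = 0.00106). Slc39a4, the intestinal zinc importer ZIP4, read 3.98 and 3.86 for Nr4a-TKO, 2.80 and 2.45 for WT Treg, 2.44 and 1.16 for Foxp3-KO and 1.13 and 1.03 for WT Tconv and was 7.13-fold higher in Nr4a-TKO than WT Tconv (log2 difference 2.83 ± 0.41, adjusted p = 0.00416).

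Slc39a13 was 2.55-fold higher in WT Treg than WT Tconv (log2 difference 1.35 ± 0.14, adjusted p = 0.00228) and 2.76-fold higher in Nr4a-TKO than WT Tconv (log2 difference 1.46 ± 0.14, adjusted p = 0.00139). Slc39a14, the importer of zinc and manganese ZIP14, was lower in WT Treg and Foxp3-KO than in the other groups, at -0.22 and -0.20 for WT Treg, 0.039 and 0.028 for Foxp3-KO, 0.60 and 0.67 for WT Tconv and 0.72 and 1.0 for Nr4a-TKO. It was 1.80-fold lower in WT Treg than WT Tconv (log2 difference -0.85 ± 0.11, adjusted p = 0.00393) and 2.10-fold higher in Nr4a-TKO than WT Treg (log2 difference 1.07 ± 0.11, adjusted p = 0.00215). Slc39a6 was 2.0-fold lower in WT Treg than WT Tconv (log2 difference -1.0 ± 0.072, adjusted p = 0.000742) and 1.63-fold lower in Foxp3-KO than WT Tconv (log2 difference -0.70 ± 0.072, adjusted p = 0.00417). Slc39a3 was 2.32-fold lower in Nr4a-TKO than WT Tconv (log2 difference -1.22 ± 0.12, adjusted p = 0.00161). Slc30a5 and Slc30a1, zinc exporter genes, and Slc11a2, which encodes the iron importer DMT1, were called in none of the 6 comparisons.

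Of the magnesium transporters, Slc41a1 and Slc41a2 were highest in Nr4a-TKO. Slc41a2 read -1.08 and -1.65 for Nr4a-TKO, -2.30 and -2.83 for Foxp3-KO, -4.24 and -4.90 for WT Tconv (not well above background) and -5.21 and -5.86 for WT Treg (not well above background), and both precursor groups exceeded both wild-type groups. It was at least 8.29-fold higher in Nr4a-TKO than WT Tconv (adjusted p = 0.00227), at least 7.82-fold higher in Nr4a-TKO than WT Treg (adjusted p = 0.0016) and at least 3.41-fold higher in Foxp3-KO than WT Treg (adjusted p = 0.0164). Slc41a1 was 2.90-fold higher in Nr4a-TKO than WT Tconv (log2 difference 1.53 ± 0.11, adjusted p = 0.000756), 1.79-fold higher in Nr4a-TKO than WT Treg (log2 difference 0.84 ± 0.11, adjusted p = 0.00543) and 2.22-fold higher in Nr4a-TKO than Foxp3-KO (log2 difference 1.15 ± 0.11, adjusted p = 0.00279). Slc41a3 was 1.74-fold lower in Nr4a-TKO than WT Tconv (log2 difference -0.80 ± 0.12, adjusted p = 0.0044). Slc41a2 was no longer called between Foxp3-KO and WT Treg without WT Treg 2 (adjusted p up to 0.0823).

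Slc11a1, which pumps metals out of phagosomes, and Slc40a1, the iron exporter ferroportin, are both known from macrophages. Slc11a1 read -6.54 and -6.63 for WT Tconv (not well above background), -1.88 and -1.84 for WT Treg, -0.30 and -0.93 for Nr4a-TKO and -0.81 and -3.98 for Foxp3-KO (well above background on 1 array), and Slc40a1 read -6.39 and -6.52 for WT Tconv (not well above background), -0.62 and -3.76 for WT Treg (well above background on 1 array), -1.65 and -2.07 for Nr4a-TKO and 0.28 and -2.87 for Foxp3-KO. Neither was well above background in WT Tconv. Slc11a1 was at least 21.2-fold higher in Nr4a-TKO than WT Tconv (adjusted p = 0.00604), and Slc40a1 was at least 13.2-fold higher in Foxp3-KO than WT Tconv (adjusted p = 0.0437). The 2 Foxp3-KO arrays differed by over 3 units for both genes, as did the 2 WT Treg arrays for Slc40a1. Replicate 1 was the higher in each of these pairs, as it was for the myeloid markers. The median of the 12 myeloid markers was -5.31 and -5.33 for WT Tconv and -0.36 and -1.65 for WT Treg. It was 1.76 and 0.66 for Nr4a-TKO and 1.12 and -1.50 for Foxp3-KO. The part of these markers in the result was not tested. Slc40a1 dropped out of the calls between Foxp3-KO and WT Tconv without any 1 array other than WT Treg 1, WT Treg 2 and Foxp3-KO 2 (adjusted p up to 0.171).

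**Figure D4:**
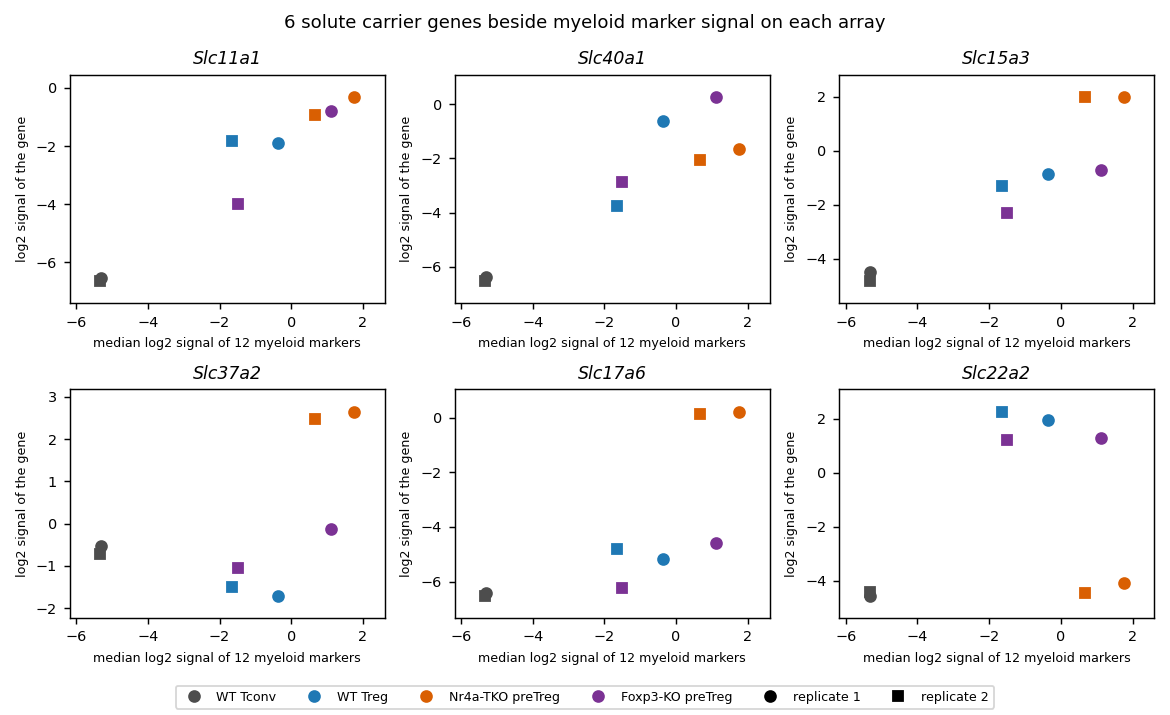
Log2 signal of 6 solute carrier genes on each array (vertical axis) against the median log2 signal of 12 myeloid markers on the same array (horizontal axis). Circles are replicate 1 and squares replicate 2. Slc11a1 and Slc40a1 were lower on Foxp3-KO preTreg 2 than on Foxp3-KO preTreg 1, where the marker median was 1.12, and Slc22a2 read 1.29 on replicate 1 and 1.21 on replicate 2. The part of myeloid cells in these levels was not tested.

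Transporters of sodium, potassium, calcium, chloride and bicarbonate had 28 tested genes of 43, 20 of them called and 13 with at least a 2-fold difference. The 28 included Slc4a1ap, Slc9a3r1 and Slc9a3r2, which name no transporter. Of these only Slc4a1ap was called, in 1 comparison. The sodium-coupled bicarbonate transporter genes Slc4a7 and Slc4a8 were higher outside WT Tconv. Slc4a7 read 2.79 and 2.57 for Nr4a-TKO, 1.96 and 1.97 for WT Treg, 1.53 and 0.82 for Foxp3-KO and 0.016 and 0.11 for WT Tconv, with no overlap between the groups. It was 3.74-fold higher in WT Treg than WT Tconv (log2 difference 1.90 ± 0.23, adjusted p = 0.00362), 6.15-fold higher in Nr4a-TKO than WT Tconv (log2 difference 2.62 ± 0.23, adjusted p = 0.00112) and 2.84-fold higher in Nr4a-TKO than Foxp3-KO (log2 difference 1.51 ± 0.23, adjusted p = 0.00851). For these 3 comparisons its other probe had differences of 2.0, 2.45 and 1.40. Slc4a7 was also 2.16-fold higher in Foxp3-KO than WT Tconv (log2 difference 1.11 ± 0.23, adjusted p = 0.0253). Slc4a8 was 4.06-fold higher in WT Treg than WT Tconv (log2 difference 2.02 ± 0.18, adjusted p = 0.00135), 5.13-fold higher in Nr4a-TKO than WT Tconv (log2 difference 2.36 ± 0.18, adjusted p = 0.000756) and 2.72-fold higher in Nr4a-TKO than Foxp3-KO (log2 difference 1.45 ± 0.18, adjusted p = 0.00459). It was also 1.88-fold higher in Foxp3-KO than WT Tconv (log2 difference 0.91 ± 0.18, adjusted p = 0.021). Slc4a7 lost its call between Foxp3-KO and WT Tconv without WT Tconv 1, WT Tconv 2, WT Treg 1 or WT Treg 2 (adjusted p up to 0.134). Slc4a8 was no longer called between Foxp3-KO and WT Tconv without WT Tconv 1 or WT Tconv 2 (adjusted p up to 0.122).

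Slc4a11, a borate transporter-like member that conducts protons, was high in Nr4a-TKO alone, at -0.10 and -0.58 for Nr4a-TKO, -3.43 and -2.99 for WT Tconv, -3.78 and -3.10 for Foxp3-KO and -4.24 and -3.81 for WT Treg (well above background on 1 array). It was 7.33-fold higher in Nr4a-TKO than WT Tconv (log2 difference 2.87 ± 0.32, adjusted p = 0.00199), 12.9-fold higher in Nr4a-TKO than WT Treg (log2 difference 3.69 ± 0.32, adjusted p = 0.00153) and 8.60-fold higher in Nr4a-TKO than Foxp3-KO (log2 difference 3.10 ± 0.32, adjusted p = 0.00294). Slc24a3, a potassium-dependent sodium and calcium exchanger gene, read 1.28 and 0.60 for Nr4a-TKO, -1.82 and -1.86 for WT Treg, -1.44 and -3.69 for Foxp3-KO and -3.88 and -3.58 for WT Tconv. The 2 Foxp3-KO arrays differed by more than 2 units, and Nr4a-TKO exceeded the other 6 arrays. Replicate 1 was again the higher in Foxp3-KO, WT Treg and Nr4a-TKO, as for the marker medians of myeloid cells (1.12 and -1.50 in Foxp3-KO) and B cells (-0.052 and -3.02), whose part was not tested. Slc24a3 was 25.4-fold higher in Nr4a-TKO than WT Tconv (log2 difference 4.67 ± 0.71, adjusted p = 0.005). Slc8b1, which encodes the mitochondrial sodium and calcium exchanger, was 2.79-fold higher in Nr4a-TKO than WT Tconv (log2 difference 1.48 ± 0.27, adjusted p = 0.00859), and its dimmer probe had a difference of only 0.21. Slc8b1 dropped out of the calls between Nr4a-TKO and WT Tconv without WT Tconv 1 (adjusted p up to 0.0506).

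Sodium and proton exchangers also differed. Slc9b2 read 1.51 and 1.48 for Nr4a-TKO, 0.99 and 1.14 for WT Treg, 0.81 and 0.65 for Foxp3-KO and -0.46 and -0.73 for WT Tconv, and WT Tconv was lowest without overlap. It was 3.16-fold higher in WT Treg than WT Tconv (log2 difference 1.66 ± 0.12, adjusted p = 0.000794), 4.25-fold higher in Nr4a-TKO than WT Tconv (log2 difference 2.09 ± 0.12, adjusted p = 0.000408) and 2.52-fold higher in Foxp3-KO than WT Tconv (log2 difference 1.33 ± 0.12, adjusted p = 0.00309). Slc9a7, an exchanger of the Golgi, was 9.44-fold higher in Nr4a-TKO than WT Tconv (log2 difference 3.24 ± 0.47, adjusted p = 0.00426). Slc9a9, an endosomal exchanger gene, was 2.40-fold lower in WT Treg than WT Tconv (log2 difference -1.26 ± 0.16, adjusted p = 0.00375). Slc9b1 was 2.30-fold lower in Nr4a-TKO than WT Tconv (log2 difference -1.20 ± 0.24, adjusted p = 0.0118), and its dimmer probe had a difference of -0.60. Slc9b1 lost its call between Nr4a-TKO and WT Tconv without WT Tconv 1 or WT Tconv 2 (adjusted p up to 0.0676).

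The cation and chloride cotransporters of the Slc12 family differed by member. Slc12a8 read -1.85 and -1.85 for WT Treg, -1.96 and -1.77 for Nr4a-TKO, -3.63 and -4.09 for Foxp3-KO (not well above background) and -5.85 and -5.88 for WT Tconv (not well above background). It was well above background in WT Treg and Nr4a-TKO only. Slc12a8 was at least 8.99-fold higher in WT Treg than WT Tconv (adjusted p = 0.00018), at least 8.91-fold higher in Nr4a-TKO than WT Tconv (adjusted p = 0.000176) and at least 4.0-fold higher in Nr4a-TKO than Foxp3-KO (adjusted p = 0.00166). Slc12a2, the sodium, potassium and chloride cotransporter NKCC1, was 2.0-fold higher in Nr4a-TKO than WT Tconv (log2 difference 1.0 ± 0.16, adjusted p = 0.00631). Slc12a4 and Slc12a7 encode potassium and chloride cotransporters. Slc12a4 was 1.59-fold higher in Nr4a-TKO than WT Tconv (log2 difference 0.66 ± 0.082, adjusted p = 0.00272), and Slc12a7 was 2.65-fold lower in Nr4a-TKO than WT Tconv (log2 difference -1.41 ± 0.17, adjusted p = 0.00239). Slc12a5 was 2.79-fold lower in WT Treg than WT Tconv (log2 difference -1.48 ± 0.36, adjusted p = 0.0283). Slc4a1, the red cell anion exchanger, read -4.36 and -3.91 for WT Tconv (well above background on 1 array), -4.36 and -4.10 for WT Treg (not well above background), -4.33 and -3.78 for Nr4a-TKO and -4.74 and -4.62 for Foxp3-KO (not well above background) and was called in none of the 6 comparisons. Slc12a5 was no longer called between WT Treg and WT Tconv without any 1 array other than Foxp3-KO 1 and Foxp3-KO 2 (adjusted p up to 0.135).

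Phosphate, sulphate and dicarboxylate transporters had 10 tested genes of 22, 7 of them called. Slc13a3 encodes NaDC3, a sodium-coupled carrier of dicarboxylates. It read -1.41 and -1.61 for Nr4a-TKO, -5.10 and -5.46 for WT Treg (not well above background), -4.56 and -6.35 for Foxp3-KO (not well above background) and -6.63 and -6.74 for WT Tconv (not well above background), and Nr4a-TKO was the only group above background. Slc13a3 was at least 11.4-fold higher in Nr4a-TKO than WT Tconv (adjusted p = 0.00182), at least 7.08-fold higher in Nr4a-TKO than WT Treg (adjusted p = 0.00662) and at least 5.83-fold higher in Nr4a-TKO than Foxp3-KO (adjusted p = 0.00652). Slc34a3, a sodium-coupled phosphate transporter known from the kidney, read -3.09 and -2.42 for Nr4a-TKO, -4.84 and -4.03 for WT Treg (not well above background), -5.81 and -6.15 for Foxp3-KO (not well above background) and -6.43 and -6.45 for WT Tconv (not well above background). Slc34a3 was at least 4.80-fold higher in Nr4a-TKO than WT Tconv (adjusted p = 0.00122) and at least 2.46-fold higher in Nr4a-TKO than Foxp3-KO (adjusted p = 0.00314). Both Slc13a3 and Slc34a3 passed the filter through Nr4a-TKO alone.

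Slc20a1, the ubiquitous phosphate transporter PiT1, ran the other way at 5.46 and 5.34 for WT Tconv, 4.71 and 4.39 for WT Treg, 4.74 and 5.02 for Foxp3-KO and 4.23 and 4.13 for Nr4a-TKO. It was 2.33-fold lower in Nr4a-TKO than WT Tconv (log2 difference -1.22 ± 0.15, adjusted p = 0.00259). Slc26a11, a sulphate and chloride transporter gene, was 3.15-fold higher in Nr4a-TKO than WT Tconv (log2 difference 1.65 ± 0.32, adjusted p = 0.0101). Slc26a2, a sulphate transporter gene, was 1.65-fold higher in WT Treg than WT Tconv (log2 difference 0.73 ± 0.10, adjusted p = 0.0046), 1.74-fold higher in Nr4a-TKO than WT Tconv (log2 difference 0.80 ± 0.10, adjusted p = 0.00255) and 1.86-fold higher in Nr4a-TKO than Foxp3-KO (log2 difference 0.89 ± 0.10, adjusted p = 0.00332). Slc26a1 was 3.19-fold higher in Foxp3-KO than WT Tconv (log2 difference 1.67 ± 0.32, adjusted p = 0.021), and Slc26a6 was 2.17-fold lower in Nr4a-TKO than WT Tconv (log2 difference -1.12 ± 0.20, adjusted p = 0.00847). Slc26a11 dropped out of the calls between Nr4a-TKO and WT Tconv without WT Tconv 1, WT Tconv 2 or Nr4a-TKO 1 (adjusted p up to 0.0566). Slc26a1 lost its call between Foxp3-KO and WT Tconv without WT Tconv 1, WT Tconv 2 or Foxp3-KO 2 (adjusted p up to 0.112). Slc26a6 was no longer called between Nr4a-TKO and WT Tconv without WT Tconv 1 (adjusted p up to 0.0524).

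Transporters of amines and neurotransmitters and vesicular anion carriers had 13 tested genes of 33, 8 of them called. Slc17a6 encodes VGLUT2, which loads glutamate into synaptic vesicles. It read 0.22 and 0.13 for Nr4a-TKO, -5.16 and -4.80 for WT Treg (not well above background), -4.57 and -6.25 for Foxp3-KO (not well above background) and -6.42 and -6.51 for WT Tconv (not well above background). Nr4a-TKO was the only group above background, by more than 4 units over the highest other array. The gene passed the filter through this group alone. Slc17a6 was at least 36.6-fold higher in Nr4a-TKO than WT Tconv (adjusted p = 0.000839), at least 22.8-fold higher in Nr4a-TKO than WT Treg (adjusted p = 0.00218) and at least 18.8-fold higher in Nr4a-TKO than Foxp3-KO (adjusted p = 0.00232). On Foxp3-KO 1, where the median of the myeloid markers was 1.12, Slc17a6 was not well above background. On Nr4a-TKO 2, where that median was 0.66, it read 0.13. The median of the B cell markers was 2.04 and -0.22 in Nr4a-TKO and -0.052 on Foxp3-KO 1. The part of these cells in the result was not tested.

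Slc6a8, the creatine transporter, read -0.53 and -0.89 for Nr4a-TKO, -2.06 and -1.66 for WT Treg, -2.13 and -2.43 for Foxp3-KO and -2.36 and -2.96 for WT Tconv and was 3.85-fold higher in Nr4a-TKO than WT Tconv (log2 difference 1.95 ± 0.26, adjusted p = 0.00357). Slc6a9, the glycine transporter GlyT1, was 3.42-fold lower in WT Treg than WT Tconv (log2 difference -1.78 ± 0.15, adjusted p = 0.00117) and 2.37-fold lower in Nr4a-TKO than WT Tconv (log2 difference -1.24 ± 0.15, adjusted p = 0.00244), but its dimmer probe had a difference of 1.19 between Nr4a-TKO and WT Tconv. Slc17a9 loads nucleotides into vesicles and was 2.29-fold lower in Foxp3-KO than WT Tconv (log2 difference -1.19 ± 0.21, adjusted p = 0.0173). Slc17a8, which encodes VGLUT3, was 2.21-fold higher in Nr4a-TKO than WT Treg (log2 difference 1.14 ± 0.32, adjusted p = 0.0409). Slc6a13, a GABA transporter gene, was not well above background in WT Treg, alone among the groups, and was at least 3.37-fold higher in Nr4a-TKO than WT Treg (adjusted p = 0.0266). Slc18a2, the vesicular monoamine transporter, was 2.02-fold lower in Nr4a-TKO than WT Tconv (log2 difference -1.01 ± 0.21, adjusted p = 0.0135). Slc17a9 dropped out of the calls between Foxp3-KO and WT Tconv without WT Tconv 1 or WT Tconv 2 (adjusted p up to 0.101). Slc17a8 lost its call between Nr4a-TKO and WT Treg without any 1 array other than Foxp3-KO 1 and Foxp3-KO 2 (adjusted p up to 0.162). Slc6a13 was no longer called between Nr4a-TKO and WT Treg without WT Treg 1, WT Treg 2 or Nr4a-TKO 1 (adjusted p up to 0.12). Slc18a2 dropped out of the calls between Nr4a-TKO and WT Tconv without WT Tconv 1 or Nr4a-TKO 1 (adjusted p up to 0.0729).

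The promoters of Slc17a6, Slc13a3 and Slc37a2 are shown because these genes were highest in Nr4a-TKO. They are the 250 bases before the RefSeq start on the strand of the gene, with matches to the same 6 motifs in capitals.
Slc17a6, GRCm38.p6 chr7:51621580-51621829, plus strand: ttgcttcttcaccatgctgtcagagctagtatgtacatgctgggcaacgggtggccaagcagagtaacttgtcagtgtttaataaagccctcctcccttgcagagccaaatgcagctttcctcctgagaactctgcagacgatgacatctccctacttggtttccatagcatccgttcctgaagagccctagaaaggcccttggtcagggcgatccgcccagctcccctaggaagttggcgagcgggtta
Slc13a3, GRCm38.p6 chr2:165473198-165473447, minus strand: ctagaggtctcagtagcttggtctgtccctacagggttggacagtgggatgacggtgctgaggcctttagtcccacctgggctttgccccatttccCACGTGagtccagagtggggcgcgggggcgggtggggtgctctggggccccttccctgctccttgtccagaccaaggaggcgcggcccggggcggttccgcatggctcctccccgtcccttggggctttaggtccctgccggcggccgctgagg
Slc37a2, GRCm38.p6 chr9:37255739-37255988, minus strand: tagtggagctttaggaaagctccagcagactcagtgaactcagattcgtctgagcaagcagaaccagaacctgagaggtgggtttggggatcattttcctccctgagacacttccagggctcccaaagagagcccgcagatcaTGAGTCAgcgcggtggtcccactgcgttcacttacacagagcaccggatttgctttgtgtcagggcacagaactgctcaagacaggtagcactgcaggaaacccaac
Slc17a6 held none of the motifs in this window. Slc13a3 held the E-box, 154 to 149 bases before the start. Slc37a2 held an AP-1 match. The AP-1 motif was found in 5.79% of member promoters and in 6.75% of all.

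Mitochondrial carriers of the Slc25 family had 38 tested genes of 47, 26 of them called and 9 with at least a 2-fold difference. Nr4a-TKO had 9 higher and 14 lower than WT Tconv, beside 21.2% and 27.2% of all tested genes. The carriers of ATP-magnesium and phosphate went different ways. Slc25a24 read 2.25 and 2.24 for Nr4a-TKO, 1.04 and 0.97 for WT Treg, 1.18 and 0.46 for Foxp3-KO and -0.39 and -0.47 for WT Tconv. WT Tconv was lowest and Nr4a-TKO highest, without overlap. Slc25a24 was 6.38-fold higher in Nr4a-TKO than WT Tconv (log2 difference 2.67 ± 0.23, adjusted p = 0.00103) and 2.69-fold higher in Nr4a-TKO than Foxp3-KO (log2 difference 1.43 ± 0.23, adjusted p = 0.00937). Slc25a41, a member of the same group, was 4.57-fold higher in WT Treg than WT Tconv (log2 difference 2.19 ± 0.21, adjusted p = 0.00178), 3.47-fold higher in Nr4a-TKO than WT Tconv (log2 difference 1.79 ± 0.21, adjusted p = 0.0024) and 3.06-fold higher in Foxp3-KO than WT Tconv (log2 difference 1.61 ± 0.21, adjusted p = 0.00836). Slc25a23 was not well above background in Nr4a-TKO and was at least 4.11-fold lower in Nr4a-TKO than WT Tconv (adjusted p = 0.00668). Slc25a25 was 1.55-fold lower in Nr4a-TKO than WT Tconv (log2 difference -0.63 ± 0.12, adjusted p = 0.011). Slc25a25 lost its call between Nr4a-TKO and WT Tconv without WT Tconv 1, WT Tconv 2 or Nr4a-TKO 1 (adjusted p up to 0.0697).

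Slc25a29, a mitochondrial carrier of basic amino acids, was 2.36-fold lower in Nr4a-TKO than WT Treg (log2 difference -1.24 ± 0.17, adjusted p = 0.00591) and 2.32-fold lower in Nr4a-TKO than Foxp3-KO (log2 difference -1.21 ± 0.17, adjusted p = 0.00713). Slc25a27, an uncoupling protein gene, was 3.17-fold lower in Nr4a-TKO than WT Treg (log2 difference -1.67 ± 0.31, adjusted p = 0.0132). Slc25a53, an orphan member, was 3.23-fold higher in Nr4a-TKO than WT Tconv (log2 difference 1.69 ± 0.43, adjusted p = 0.0238). Slc25a10, the dicarboxylate carrier, was well above background in WT Tconv and Nr4a-TKO only and was at least 1.95-fold higher in Nr4a-TKO than WT Treg (adjusted p = 0.0456). Slc25a47 was 2.14-fold lower in Nr4a-TKO than WT Tconv (log2 difference -1.1 ± 0.20, adjusted p = 0.00804). The abundant carriers moved little. Slc25a5, the adenine nucleotide translocator ANT2, read 4.78 and 4.77 for WT Tconv, 4.28 and 4.31 for WT Treg, 4.30 and 4.32 for Nr4a-TKO and 4.46 and 4.49 for Foxp3-KO and was 1.39-fold lower in WT Treg than WT Tconv (log2 difference -0.48 ± 0.063, adjusted p = 0.00449) and 1.38-fold lower in Nr4a-TKO than WT Tconv (log2 difference -0.47 ± 0.063, adjusted p = 0.0034). Slc25a4, the translocator ANT1, was 1.41-fold higher in Nr4a-TKO than Foxp3-KO (log2 difference 0.49 ± 0.11, adjusted p = 0.021). Slc25a1, the citrate carrier, was 1.40-fold higher in WT Treg than WT Tconv (log2 difference 0.49 ± 0.12, adjusted p = 0.031). Slc25a3, the phosphate carrier, was called in none of the 6 comparisons. Slc25a27 was no longer called between Nr4a-TKO and WT Treg without WT Treg 1, WT Treg 2 or Nr4a-TKO 1 (adjusted p up to 0.07). Slc25a53 dropped out of the calls between Nr4a-TKO and WT Tconv without any 1 of their 4 arrays (adjusted p up to 0.1). Slc25a10 lost its call between Nr4a-TKO and WT Treg without any 1 array other than WT Treg 1 and WT Treg 2 (adjusted p up to 0.161). Slc25a47 was no longer called between Nr4a-TKO and WT Tconv without WT Tconv 2 (adjusted p up to 0.0503). Slc25a4 dropped out of the calls between Nr4a-TKO and Foxp3-KO without WT Tconv 1, WT Tconv 2, Nr4a-TKO 1 or Nr4a-TKO 2 (adjusted p up to 0.0876). Slc25a1 lost its call between WT Treg and WT Tconv without any 1 of their 4 arrays (adjusted p up to 0.158).

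Outside these families, Slc49a4, a lysosomal member, was 1.72-fold lower in Nr4a-TKO than WT Tconv (log2 difference -0.78 ± 0.13, adjusted p = 0.0064) and 1.71-fold lower in Nr4a-TKO than Foxp3-KO (log2 difference -0.78 ± 0.13, adjusted p = 0.0104).

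**Figure D5:**
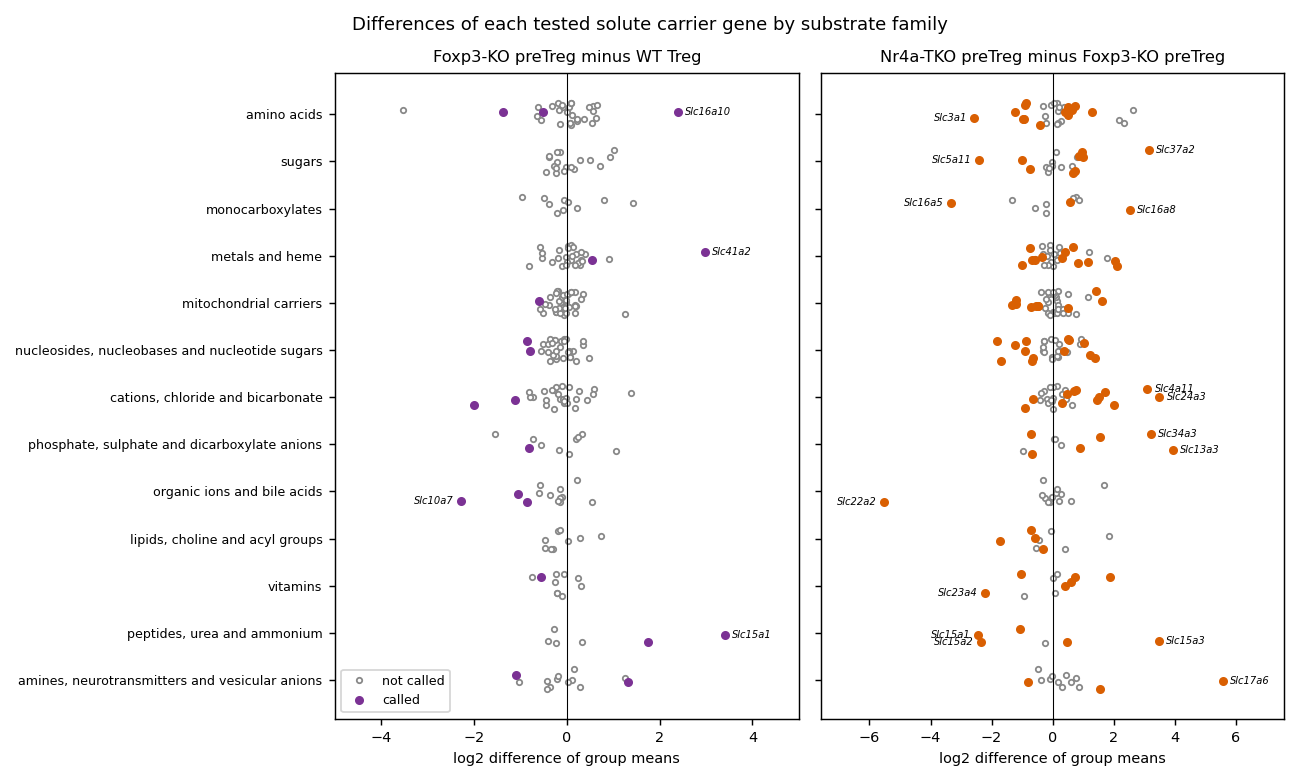
Log2 difference of group means of each tested solute carrier gene by substrate family, for Foxp3-KO preTreg minus WT Treg (left) and Nr4a-TKO preTreg minus Foxp3-KO preTreg (right). Filled points were called, open points were not, and called genes with a difference of at least 2.2 are named. A fitted difference of a gene not above background in 1 group is drawn as fitted and is no measured fold. Slc22a2 is the lowest point on the right and Slc17a6 the highest.

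Set side by side, the precursor groups stood in different places relative to the wild-type groups, between them for some genes and outside them for others. In Foxp3-KO, 19 members differed from WT Treg, and each of these calls ended without at least 1 of the 8 arrays. Of the 6 higher ones, 5 differed by at least 2-fold, and the zinc exporter gene Slc30a4 by less. The 6 included Slc15a1, Slc16a10 and Slc6a9, all of which were lower in WT Treg than in WT Tconv and lay between them in Foxp3-KO by the probes used. The dimmer probe of Slc6a9, well above background on 4 arrays, was instead highest in Foxp3-KO of these groups. It read -3.39 in Foxp3-KO, -3.83 in WT Tconv and -4.37 in WT Treg. The dimmer probe of Slc16a10 differed by only 0.37 between Foxp3-KO and WT Treg. Slc15a2 and Slc41a2, also among the 6, were higher in Foxp3-KO than in both wild-type groups. Slc12a8 and Slc4a8 were lower in Foxp3-KO than in WT Treg and higher in WT Treg than in WT Tconv. Slc4a8 was 2.16-fold lower in Foxp3-KO than WT Treg (log2 difference -1.11 ± 0.18, adjusted p = 0.0281), and Slc12a8 was at least 4.04-fold lower in Foxp3-KO than WT Treg (adjusted p = 0.0078). Among genes well above background on at least 1 array of both groups, the called ones furthest below WT Treg in Nr4a-TKO were Slc22a2, Slc35g1 and Slc16a5, and those furthest above were Slc37a2, Slc4a11 and Slc15a3. These comparisons share the WT Treg arrays. Slc4a8 was no longer called between Foxp3-KO and WT Treg without any 1 array other than Foxp3-KO 1 and Foxp3-KO 2 (adjusted p up to 0.12). Slc12a8 dropped out of the calls between Foxp3-KO and WT Treg without WT Treg 2 (adjusted p up to 0.0572).

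Other transporter genes were counted in the same way. Over all tested genes, 14% were higher and 20.2% lower in WT Treg than in WT Tconv, and 21.2% and 27.2% in Nr4a-TKO than in WT Tconv. Of 32 tested ABC transporters of 50, 6 were higher and 6 lower in WT Treg than in WT Tconv, and 10 were higher and 14 lower in Nr4a-TKO than in WT Tconv. Of 26 tested P-type ATPases, 4 were higher and 8 lower in WT Treg than in WT Tconv. In Nr4a-TKO, 3 were higher and 12 lower than in WT Tconv, with a median log2 difference of -0.50 beside -0.11 for all tested genes. The V-type proton ATPase acidifies lysosomes, and 17 of its subunit genes were tested. In WT Treg, 2 of them were higher and 6 lower than in WT Tconv, with a median of -0.21 beside -0.075. In Nr4a-TKO, 4 were higher and 4 lower than in WT Tconv, with a median of 0.059. Against WT Treg, Nr4a-TKO had 6 higher and 1 lower, beside 18.5% and 16.5% of all genes, with a median of 0.27 beside -0.014. Against Foxp3-KO it had 3 higher and 3 lower, beside 17.6% and 15.7% of all genes. Of 14 Slco genes on the array, 4 were tested. Of 5 tested aquaporins, 1 was lower in WT Treg than in WT Tconv. Of 24 tested transporters without an Slc symbol, 2 were higher and 7 lower in WT Treg than in WT Tconv. These lists were not tested as sets.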

How the data were processed

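Total RNA of the 8 sorted samples was measured on 1-colour Agilent arrays, with 2 biological replicates a group. The values used are the deposited processed signal, a linear Cy3 intensity per spot that Agilent Feature Extraction 10.7.1.1 made by background subtraction and detrending, per the file headers, with no normalization between arrays. The authors' deposited value matrix, used as an alternative, holds linear intensity scaled per array so that the 75th percentile is near 1, as found by setting it against the scanner values, and its exact construction is not given in the sources used here.

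Control spots and outlier-flagged spots were left out, spots of 1 probe were averaged, and log2 signal minus the array's 75th percentile was taken. Of 55681 probes, 28020 had a symbol through their RefSeq accession, 27661 had none, and 1776 of the latter carried a RefSeq accession without a match. The brightest probe stood for a gene, and 13494 genes were tested. Differences were fitted with limma 3.58.1 in R 4.3.3 (lmFit and eBayes without trend) over all 8 arrays, with 4 residual and 1.6 prior degrees of freedom, and p-values were adjusted over all tested genes. With 2 arrays a group, their number limits the precision. The replicates are biological per the labels, but their pooling and litters are not given, so p-values measure the spread between these samples. Lower bounds set the brighter group's mean against, per array of the dimmer group, the higher of the lowest signal among probes well above background and the probe's own. The adjusted p beside a bound is limma's for the fitted difference, which uses readings below background, and does not test the bound.

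The solute carrier genes, the substrate families, the gene lists and the rules were chosen with earlier results of these data known. In each family, members called with at least a 2-fold difference, members not well above background in 1 group and above it in another, a preset group of transporters known from T cells, and the 8 members with the largest called difference in each direction of each comparison could be named. Results of a few genes are not reported here. The alternatives were quantile or median scaling, normexp background correction of the spot and local background medians (offset 50), the deposited matrix, other filters on dim probes, the mean of all probes, an intensity trend, only the groups compared, a replicate block, and leaving out each array. The fit was tested on simulated data, in which 50 of 13494 genes were given each of 4 fold changes in Nr4a-TKO. Between Nr4a-TKO and WT Tconv it recovered 28% of the 1.5-fold, 60% of the 2-fold, 84% of the 4-fold and 88% of the 8-fold changes. A gene that was not called may thus still differ. The deviations of same-numbered arrays from their group means correlated at -0.028 to -0.010 in the 3 pairs of groups with WT Tconv and at 0.15 to 0.26 in the 3 pairs among WT Treg, Nr4a-TKO and Foxp3-KO. Not every pair exceeded 0.1, so the numbers were not taken to pair the samples. Promoter sequences were searched and tables joined in Python 3.11.15 with pandas 2.3.3, and plots drawn with matplotlib 3.10.9.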

Additional observations from a re-analysis of the deposited data

How the results depend on the processing

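Of 265 calls of named genes across the 6 comparisons, none changed direction under the alternatives run. The number that no longer passed was 3 with the deposited matrix, 1 with an intensity trend, 10 with quantile scaling, 10 with median scaling, 18 with normexp, 21 with the mean of all probes and 35 with no filter on dim probes. It was 81 with only the groups compared, where 4 arrays give the spread, and between 18 and 98 without single arrays, the highest without WT Tconv 1. With genes above background on all 8 arrays, 176 of the 265 could be run and all passed. Requiring at least 2-fold left 35 of 89 genes for WT Treg against WT Tconv, 70 of 125 for Nr4a-TKO against WT Tconv, 28 of 62 for Foxp3-KO against WT Tconv, 38 of 91 for Nr4a-TKO against WT Treg, 11 of 19 for Foxp3-KO against WT Treg and 41 of 99 for Nr4a-TKO against Foxp3-KO. In the same order, these counts of at least 2-fold became 22, 40, 17, 23, 4 and 26 with normexp, and 20, 46, 17, 24, 8 and 27 where only genes above background on all 8 arrays were tested. They ranged from 21 to 41, 49 to 72, 9 to 43, 22 to 46, 0 to 19 and 27 to 59 without single arrays. Without the fold minimum, leaving out 1 array gave ranges of 27 to 112, 62 to 145, 10 to 88, 39 to 121, 0 to 32 and 48 to 110. With only the groups compared, Foxp3-KO against WT Tconv had 23 genes, Nr4a-TKO against Foxp3-KO 19, and Foxp3-KO against WT Treg 0, where limma gave 39 at an unadjusted p under 0.05. Median scaling gave 99 for Foxp3-KO against WT Tconv and 12 for Foxp3-KO against WT Treg, and it moved the median difference of all genes against WT Tconv from -0.075 to -0.23 in WT Treg and from -0.10 to -0.25 in Foxp3-KO. No filter gave 8 for Foxp3-KO against WT Treg and 151 for Nr4a-TKO against Foxp3-KO, of which 56 were higher and 95 lower. It gave 51 higher and 81 lower for Nr4a-TKO against WT Treg. Leaving out Nr4a-TKO 2 and Foxp3-KO 1 together, chosen after seeing the data, gave 35 for Foxp3-KO against WT Treg. The replicate block gave 11 there and left the other counts within 1.5 times. The replicate numbers were not taken to pair the samples, and 18 of the 265 calls no longer passed with the block. The cause of these changes was not tested. Genes near background have a bound in place of a fold.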
